A study of Mus musculus with 11 samples.

Results

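Of the 11 polyA RNA libraries of the series, the 3 labelled YAP-S127A were set against the 8 others, which are 3 libraries of YAP-5SA and 5 of TAZ-S89A. Each library came from a cell line of a mouse liver cancer that carried the mutant in its group's name. YAP and TAZ, encoded by Yap1 and Wwtr1, are transcriptional coactivators that bind the TEAD factors on DNA. In YAP-S127A and TAZ-S89A the serine in the name, at which Hippo kinases mark the protein for retention in the cytoplasm, is replaced by alanine, and in YAP-5SA several such serines are. The labels write YAP-5SA as YAP-S5A and name no strain, promoter or construct. From them it is open whether a group's libraries are separate tumours, separate lines or repeated cultures. The p-values below therefore cover the spread among these libraries alone, which could be technical, and the mutant and the line it sits in cannot be told apart. All 11 libraries carry a mutant, and reads of an endogenous Yap1 or Wwtr1 transcript cannot be told apart from those of an introduced copy. The genes described are those for which every YAP-S127A library lay on the same side of all 8 others in CPM (counts divided by library size on a common scale, after TMM scaling between libraries). Values given as a ± b are the mean and SD of a group (n = 3, 3 and 5 libraries in YAP-S127A, YAP-5SA and TAZ-S89A, the order of any 3 group values given without names), and log2 fold changes without another group named are those of YAP-S127A against the mean of the others, with their standard error (SE). There were 6178 such genes among the 18224 tested (33.9%). Of these, 6024 (33.1%) were also called, at an adjusted p under 0.05, in the contrast of YAP-S127A with the equally weighted mean of the other groups.

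In the Hippo pathway a kinase cascade restrains YAP and TAZ, and when it is released they enter the nucleus and, with TEAD proteins, switch on genes of growth, survival and cell shape. In liver, YAP activity is known to enlarge the organ, to push hepatocytes toward biliary or progenitor states and to give tumours. Fibroblast-like stellate cells make most collagen of the scarred liver, and YAP takes part in their activation as well.

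Genes higher in YAP-S127A than in all 8 others were most frequent in the lists of collagens, mesenchymal cells and matrix glycoproteins. This ranks 35 gene lists, which were chosen with earlier results of these data known. Most collagens and matrix glycoproteins, the platelet-derived growth factor receptors, the transcription factor Prrx1 and the contractile genes Acta2 and Tagln were higher than in all 8 others. Il6 and Il11, most of the listed imprinted genes and several genes of amino acid supply were higher as well. Lower were most of the listed NRF2 targets, several keratins, several chemokines, several Wnt ligands and the Mcm genes of the replication helicase. Canonical YAP and TAZ targets went in both directions.

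Total counts ran from 20071144 to 49159713 per library and from 32314692 to 46243462 in YAP-S127A. The biological coefficient of variation between libraries was 0.0899 for YAP-S127A, smaller than the 0.173 of YAP-5SA and the 0.25 of TAZ-S89A. TAZ-S89A replicates 4 and 5 carry sample IDs of a separate number series. Their log2 CPM correlated with replicates 1 and 2 at 0.9807 to 0.9826 and with replicate 3 at 0.9771 and 0.9784. Replicate 3 correlated with replicates 1 and 2 at 0.9884 and 0.9889. Where 1 TAZ-S89A library alone stood far from the rest for a named gene, it was most often replicate 3. Without that replicate, 3238 genes in place of 3257 had no overlap and were called higher, and 3072 in place of 2767 lower. The labelled liver origin left few hepatocyte traces: 18 of 32 hepatocyte markers, among them Apoa1, Ttr, Cps1 and Cyp2e1, were too low to test, at a group mean of at most 0.166 CPM. Alb, the albumin gene, was at 0.988 ± 0.325, 0.0678 ± 0.0417 and 0.00446 ± 0.00997 CPM in the 3 groups. The leukocyte marker list (13 of 19 tested) summed to 26.03 to 30.49 CPM in YAP-S127A against 109.9 to 129.7 in YAP-5SA and 37.41 to 48.71 in TAZ-S89A.

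Most tested promoters lack the 6-letter TEAD motif GGAATG, and its shares are given in the next paragraph. Printed here are promoters of genes named below that do hold it, with the motif in capitals. They show where these letters lie in Yap1 itself, in Tead3, whose product binds the motif, and in 3 genes that were higher in YAP-S127A, the receptor gene Axl, the collagen gene Col3a1 and the smooth muscle actin gene Acta2. Each runs 5′ to 3′ on the gene's strand from 250 bases before to 50 after the annotated start, taken from RefSeq on GRCm38.p6. In Col3a1 the motif is on the opposite strand and reads CATTCC.
Yap1, chr9:8004547-8004846, minus strand: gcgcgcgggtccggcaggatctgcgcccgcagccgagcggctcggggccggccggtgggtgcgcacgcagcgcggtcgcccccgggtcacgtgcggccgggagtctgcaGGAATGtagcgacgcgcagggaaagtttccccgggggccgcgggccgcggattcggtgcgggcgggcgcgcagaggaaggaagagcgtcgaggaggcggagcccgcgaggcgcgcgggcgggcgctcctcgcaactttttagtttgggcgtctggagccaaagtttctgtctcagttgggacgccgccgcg
Tead3, chr17:28350756-28351055, minus strand: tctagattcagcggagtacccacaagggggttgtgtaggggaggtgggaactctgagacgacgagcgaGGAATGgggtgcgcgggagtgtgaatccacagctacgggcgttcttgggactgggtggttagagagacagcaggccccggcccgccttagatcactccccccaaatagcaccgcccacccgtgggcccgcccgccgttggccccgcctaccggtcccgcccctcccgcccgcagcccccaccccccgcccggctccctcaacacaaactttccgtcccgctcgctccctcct
Axl, chr7:25788684-25788983, minus strand: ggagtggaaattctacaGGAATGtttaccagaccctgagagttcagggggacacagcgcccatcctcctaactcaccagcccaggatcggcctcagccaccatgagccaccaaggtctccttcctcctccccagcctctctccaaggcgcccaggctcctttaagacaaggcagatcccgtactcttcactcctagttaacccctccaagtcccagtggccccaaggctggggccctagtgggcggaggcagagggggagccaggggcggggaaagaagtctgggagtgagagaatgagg
Col3a1, chr1:45311288-45311587, plus strand: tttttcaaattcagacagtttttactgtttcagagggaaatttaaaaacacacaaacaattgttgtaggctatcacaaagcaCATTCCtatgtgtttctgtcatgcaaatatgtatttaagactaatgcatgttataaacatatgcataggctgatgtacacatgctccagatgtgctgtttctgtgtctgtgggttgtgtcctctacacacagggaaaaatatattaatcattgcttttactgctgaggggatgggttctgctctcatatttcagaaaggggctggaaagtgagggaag
Acta2, chr19:34255324-34255623, minus strand: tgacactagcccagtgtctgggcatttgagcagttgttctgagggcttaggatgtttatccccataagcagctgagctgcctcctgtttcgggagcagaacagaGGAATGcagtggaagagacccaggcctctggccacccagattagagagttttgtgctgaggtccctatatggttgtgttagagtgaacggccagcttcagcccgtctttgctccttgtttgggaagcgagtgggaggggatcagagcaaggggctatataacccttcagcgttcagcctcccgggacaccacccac

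Searched on both strands, GGAATG was in 12.7% of the 12709 tested genes that have a promoter entry, in 13.3% of those with no overlap and called higher and in 12% of those called lower. It was in 8 of 18 promoters of the list of YAP/TAZ-TEAD targets and in 5 of 6 of the genes of YAP, TAZ, TEAD and VGLL proteins. Among the lists highest in YAP-S127A, it was in 3 of 16 promoters of collagens, in 1 of 12 of matrix glycoproteins and proteoglycans and in 1 of 10 of mesenchymal and stellate cell markers. The AP-1 motif TGANTCA was in 5.77% of all these promoters, in 5.58% of those of higher genes and in 7.01% of those of lower genes. A match shows only that the letters are present, and the targets were listed from knowledge of the pathway, so their share is not independent of it.

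The contrast with the equally weighted mean called 5419 genes higher in YAP-S127A (29.7%) and 4629 lower (25.4%) in edgeR's quasi-likelihood fit. With no overlap as well, 3257 genes were higher (17.9%) and 2767 lower (15.2%). The same measure gave 3329 (18.3%) and 2625 (14.4%) for YAP-5SA against its 8 others, and 2193 (12%) and 2901 (15.9%) for TAZ-S89A against its 6 others. Each of the 3 groups thus had a large set of such genes. With all 8 other libraries fitted as 1 group, whose spread then holds the distance between YAP-5SA and TAZ-S89A, 2524 genes were called higher and 2623 lower, and the calls of Yap1, Wwtr1, Ccn2, Pdgfrb, Vegfa, Scd1 and Jun were among those that ended. The higher genes of YAP-S127A were the less abundant, with a median average of 3.26 log2 CPM against 4.57 for the lower genes and 4.05 for all tested genes.

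Among genes with no overlap, 1582 of the higher and 1080 of the lower lay at least 1 log2 unit from both other groups, and 511 and 194 at least 3. The remaining 4024 called genes had overlapping libraries, and for 1418 of them (35.2%) the fitted differences from YAP-5SA and from TAZ-S89A had opposite signs. Between those groups, 10545 genes (57.9%) were called. Taken singly, YAP-S127A was called higher than YAP-5SA for 4917 genes (27%) and lower for 5145 (28.2%), and higher than TAZ-S89A for 5579 (30.6%) and lower for 4926 (27%). These comparisons share the YAP-S127A libraries. The limit of the rule is narrow at its edge. For Dido1, a chromatin-associated gene just inside it on the higher side, the lowest YAP-S127A library was at 166.69 CPM and the highest other at 166.66, while for the proteasome gene Psmc6, just outside, the values were 977.68 and 977.75. On the lower side the highest YAP-S127A library of Rdh11, a retinol dehydrogenase gene just inside, was at 38.716 CPM and the lowest other at 38.725. For Orc5, of the origin recognition complex, just outside, they were 33.772 and 33.763.

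**Figure D1:**
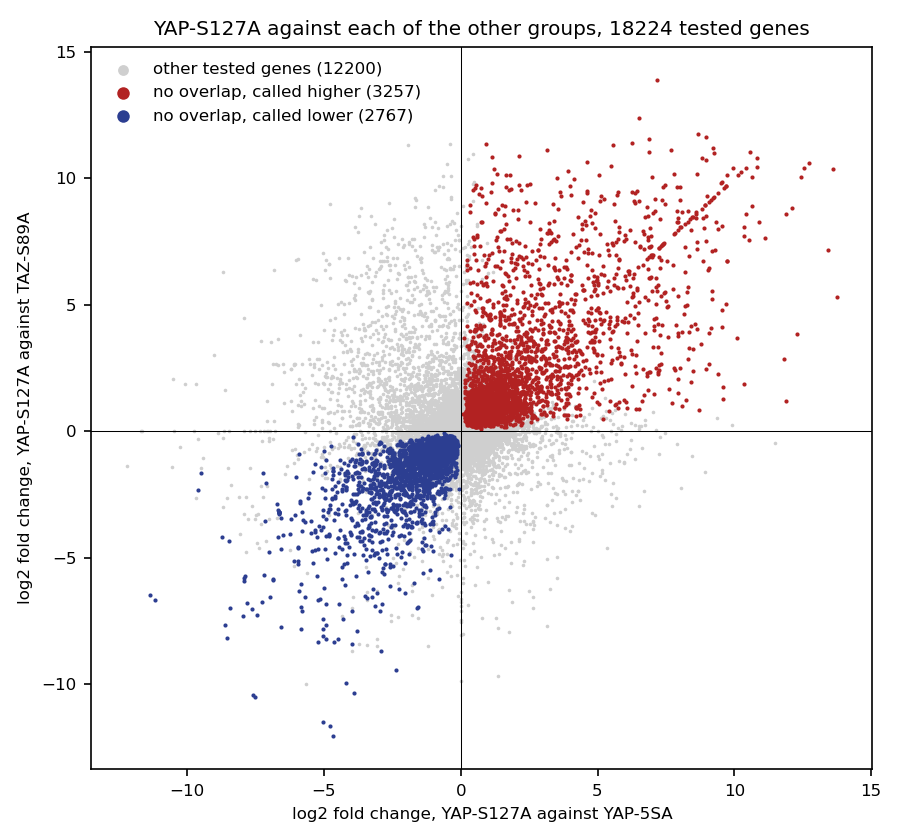
Log2 fold change of YAP-S127A against YAP-5SA (horizontal axis) and against TAZ-S89A (vertical axis), 1 point for each of 18224 tested genes. Both axes share the YAP-S127A libraries. The 3257 genes with no overlap and called higher fill the upper right and the 2767 called lower the lower left, and fitted values of genes with a group near 0 counts depend on the prior count.

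Ranked by the smaller of the 2 pairwise fold changes, the genes highest in YAP-S127A at a sizeable level were near 0 in all 8 others. Dnm3os, a noncoding RNA that hosts a pair of microRNAs, was at 151, 141 and 141 CPM in YAP-S127A against 0.0267, 0.167 and 0.0726 in YAP-5SA and 0.118, 0.0223, 0.087, 0 and 0.0835 in TAZ-S89A. Mrc2 (Entrez gene 17534, chr11:105292093-105351146), the gene of an endocytic receptor that takes up collagen fragments, was at 255, 254 and 225 CPM in YAP-S127A against 0.267, 0.0478 and 0.145 in YAP-5SA and 0.165, 0.334, 0.145, 0.367 and 0.125 in TAZ-S89A. S1pr3 (Entrez gene 13610, chr13:51408618-51422797), a receptor for the lipid sphingosine 1-phosphate, was at 86.1, 90.3 and 77 CPM in YAP-S127A against 0.187, 0.0956 and 0.218 in YAP-5SA and 0, 0.0669, 0.029, 0 and 0 in TAZ-S89A. In these genes the YAP-S127A libraries lay close together, and no other library reached 0.4 CPM. The log2 fold change of Dnm3os was 10.81 (SE 0.26, adjusted p = 1.24e-12), that of Mrc2 10.34 (SE 0.26, adjusted p = 1.60e-12) and that of S1pr3 10.29 (SE 0.24, adjusted p = 1.24e-12).

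Meg3, an imprinted noncoding RNA of the maternal chromosome, was at 115, 113 and 101 CPM in YAP-S127A against 0, 0 and 0.0484 in YAP-5SA and 0.0708, 0.111, 0.261, 0 and 0 in TAZ-S89A. Mnx1 (Entrez gene 15285, chr5:29473823-29478470), a homeobox factor of motor neurons and pancreas, was at 21.7, 21.1 and 18.5 CPM in YAP-S127A against 0 in every YAP-5SA library and 0.0236, 0.0223, 0, 0 and 0 in TAZ-S89A. Il1rl2 (Entrez gene 107527, chr1:40324589-40367555), a subunit of the receptor for interleukin 36, was at 23.2, 24.5 and 22.4 CPM in YAP-S127A against 0 in every YAP-5SA library and 0, 0.0446, 0, 0 and 0 in TAZ-S89A. These genes had at most 19 counts in the 8 other libraries together, so no fold is given. The same held for Hmcn1, a matrix protein of the hemicentin family (21.4 ± 1.07, 0.00807 ± 0.014 and 0.0129 ± 0.0186 CPM for YAP-S127A, YAP-5SA and TAZ-S89A in turn), the elastic fibre gene Fbln5 (42.8 ± 2.42, 0.0647 ± 0.0899 and 0.0152 ± 0.0218 CPM), Fibin, a small secreted factor (28.3 ± 3.68, 0.0249 ± 0.00155 and 0.016 ± 0.0254 CPM), the muscle gene Myot (17.1 ± 1.08, 0.017 ± 0.0147 and 0.0128 ± 0.0188 CPM) and Tmem47, a small membrane protein (21.5 ± 2.68, 0.0319 ± 0.0552 and 0.00446 ± 0.00997 CPM). Ttc23l, a gene with tetratricopeptide repeats that overlaps Rad1, was at 31.4 ± 3.17 CPM in YAP-S127A against 0.0605 ± 0.0677 in YAP-5SA and 0.0396 ± 0.0498 in TAZ-S89A.

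Lowest by the same measure were genes expressed in both other groups and close to silent in YAP-S127A. Aqp5 (Entrez gene 11830, chr15:99591028-99594829), a water channel of secretory epithelia, was at 0.0891, 0.0984 and 0.111 CPM in YAP-S127A against 36.1, 49.2 and 30.3 in YAP-5SA and 25.5, 32.1, 41.8, 24.1 and 24.2 in TAZ-S89A. Sat1 (Entrez gene 20229, chrX:155213126-155216449), the rate-limiting enzyme of polyamine breakdown, was at 0.357, 0.459 and 0.583 CPM in YAP-S127A against 183, 206 and 164 in YAP-5SA and 117, 117, 113, 61.1 and 65.9 in TAZ-S89A. Aldh3a1 (Entrez gene 11670, chr11:61208510-61218418), an aldehyde dehydrogenase that NRF2 and the aryl hydrocarbon receptor induce, was at 0.423, 0.558 and 0.944 CPM in YAP-S127A against 1457, 2210.4 and 1391 in YAP-5SA and 41.5, 36.2, 79.5, 64.3 and 65.3 in TAZ-S89A. The groups did not overlap in any of these, and YAP-5SA stood above TAZ-S89A for Aldh3a1 in every library. The log2 fold changes were -8.37 (SE 0.36, adjusted p = 1.94e-10) for Aqp5, -8.15 (SE 0.36, adjusted p = 2.62e-10) for Sat1 and -8.92 (SE 0.47, adjusted p = 1.79e-09) for Aldh3a1.

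Lgr5, the R-spondin receptor that marks stem cells of several epithelia, was at 0.0669, 0.0328 and 0.0278 CPM in YAP-S127A against 2.16, 1.24 and 1.96 in YAP-5SA and 22.2, 19.7, 12.6, 12.7 and 10.9 in TAZ-S89A (log2 fold change -6.78, SE 0.47). Itgb7, an integrin chain known from lymphocytes, was at 1.63 ± 0.35 CPM in YAP-S127A against 99.2 ± 3.65 in YAP-5SA and 56.8 ± 13.7 in TAZ-S89A (log2 fold change -5.53, SE 0.24, adjusted p = 2.77e-10). Irx5, a homeobox factor, was at 0.165 ± 0.0929 CPM in YAP-S127A against 7.34 ± 1.01 in YAP-5SA and 6.43 ± 1.57 in TAZ-S89A (log2 fold change -5.31, SE 0.33). Epn3, an endocytic adaptor of epithelia, was at 1.49 ± 0.489 CPM in YAP-S127A against 46.6 ± 6.07 in YAP-5SA and 37.5 ± 5.39 in TAZ-S89A (log2 fold change -4.82, SE 0.23). The complement gene C3 was at 0.061 ± 0.0258 CPM in YAP-S127A against 1.64 ± 0.0847 in YAP-5SA and 21.2 ± 15.6 in TAZ-S89A (log2 fold change -6.47, SE 0.86). TAZ-S89A was the highest group for Lgr5 and C3, and within it replicates 4 and 5 stood above the other 3 for C3.

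A further 3 genes of this set had 0 counts in YAP-S127A and few in YAP-5SA. Scn3a, a sodium channel gene, was at 0 in every YAP-S127A library against 0.16, 0.119 and 0.0484 in YAP-5SA and 8.09, 6.37, 6.15, 14.9 and 14.6 in TAZ-S89A. Serpina7, which encodes the thyroxine carrier of plasma, was at 0 in every YAP-S127A library against 0.0802, 0.119 and 0.0726 in YAP-5SA and 17.7, 17, 14.8, 1.79 and 2.46 in TAZ-S89A. Sprr1b, a gene of the cornified envelope, was at 0 in every YAP-S127A library against 0.187, 0.0478 and 0.0242 in YAP-5SA and 13.2, 13.1, 18.4, 15.8 and 12.5 in TAZ-S89A. All 3 were high only in TAZ-S89A, for Serpina7 mainly in replicates 1 to 3, and the distance of YAP-S127A from YAP-5SA rests on 10 to 13 counts. For Serpina7 the call (adjusted p = 0.0147) ended without YAP-5SA replicate 2, at an adjusted p of 0.0594 in edgeR. Tnip3, an inhibitor of NF-kappa-B signalling, had 1 count in YAP-S127A against 0.00926 ± 0.016, 28.3 ± 5.94 and 1.3 ± 0.43 CPM in the 3 groups in turn.

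**Figure D2:**
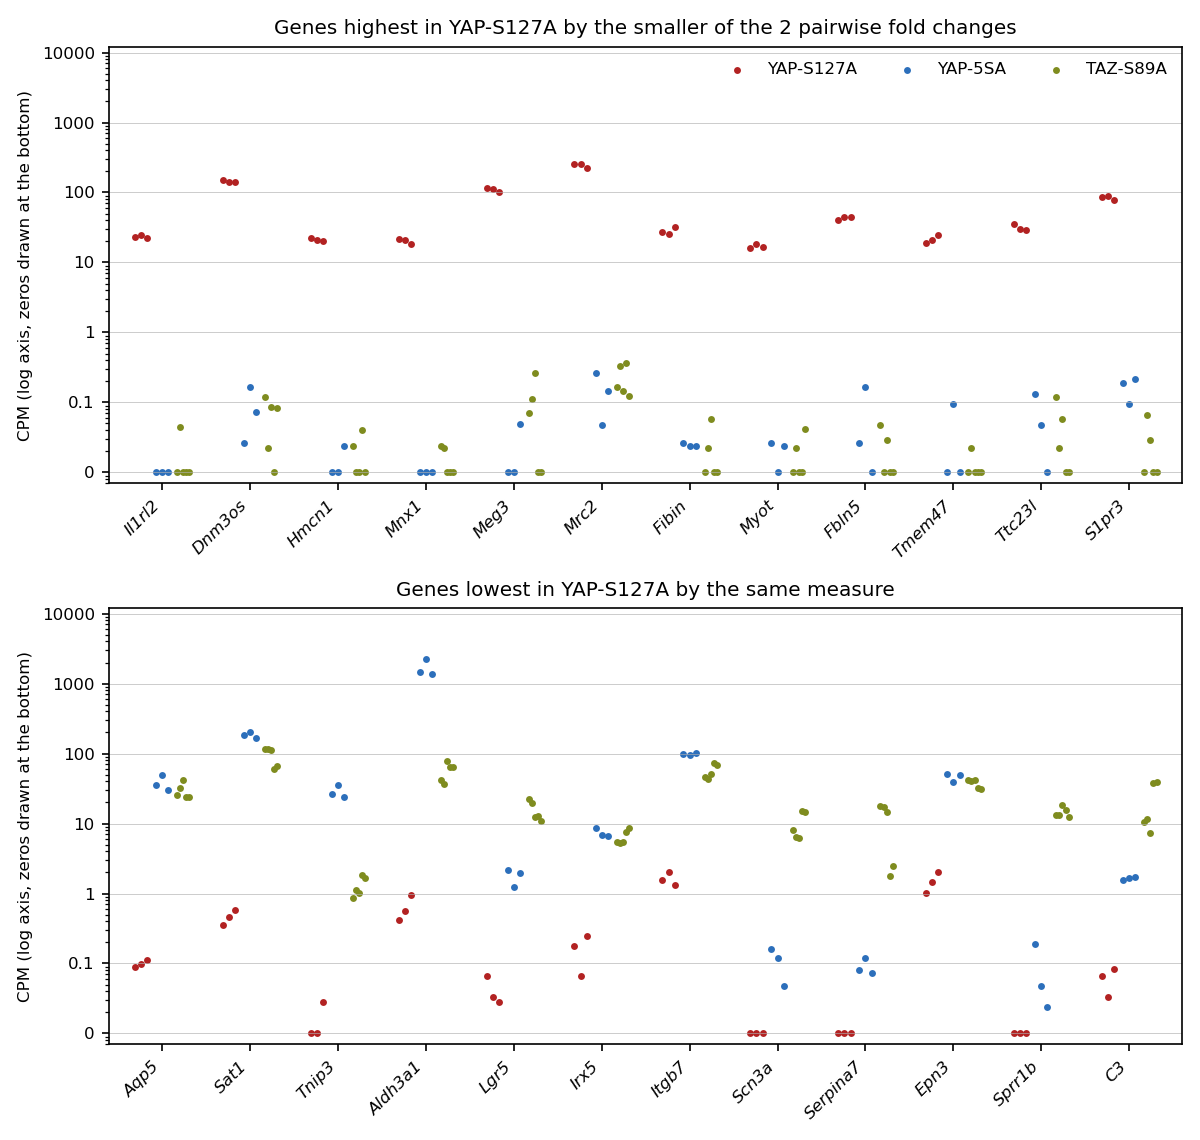
CPM on a log axis, 1 point per library with zeros drawn at the bottom, for the 12 higher and 12 lower genes with the largest smaller pairwise fold change. In the upper panel YAP-S127A stands at 10 CPM or more and no other library above 0.4, and in the lower panel no YAP-S127A library is above 3.

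Dnm3os lies opposite to Dnm3, the dynamin 3 gene, and hosts Mir199a-2 and Mir214. Their mature sequences are printed because both loci had reads only in YAP-S127A. Seeds (bases 2 to 8) are in capitals, and sequences are from RefSeq on GRCm38.p6.
mmu-miR-214-5p: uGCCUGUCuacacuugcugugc
mmu-miR-214-3p: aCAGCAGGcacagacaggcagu
mmu-miR-199a-5p: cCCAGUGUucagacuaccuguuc
mmu-miR-199a-3p: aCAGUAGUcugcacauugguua
The 4 seeds differ from each other. Mir214 (chr1:162223368-162223477) was at 6.15, 6.53 and 5.78 CPM in YAP-S127A against 0 in every YAP-5SA library and 0 in every TAZ-S89A library. Mir199a-2 (chr1:162217814-162217923) was at 1.92, 2.2 and 2.03 CPM in YAP-S127A against 0 in every YAP-5SA library and 0 in every TAZ-S89A library. Both hairpins lie within Dnm3os (chr1:162217623-162225550), and these are polyA RNA libraries, so the reads cannot be told apart from reads of the host transcript and give no level of the mature microRNAs. Dnm3 itself, at 1.02 ± 0.0541 CPM in YAP-S127A against 0.829 ± 0.405 in YAP-5SA and 0.981 ± 0.213 in TAZ-S89A, was not called (log2 fold change 0.18, SE 0.28, adjusted p = 0.611).

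Collagen genes were higher in YAP-S127A almost throughout. Of 19 tested members of the list of fibrillar and network collagens, 17 were called higher and 1 lower, 13 and 1 of them with no overlap. Their median log2 fold change was 3.58, against 0.0331 over all tested genes. For this list and those below, the shares over all tested genes were 29.7% called higher and 25.4% lower. With no overlap as well, they were 17.9% and 15.2%. Summed over the list, the libraries held 9262 to 10260 CPM in YAP-S127A against 1157 to 1541 in YAP-5SA and 3388 to 5363 in TAZ-S89A.

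Col1a1, the major chain of fibrillar type I collagen, was at 3054, 3038 and 2755 CPM in YAP-S127A against 359, 256 and 351 in YAP-5SA and 32.3, 36.5, 27.5, 28.7 and 29.8 in TAZ-S89A. Col3a1, whose product forms the type III fibres of soft tissue, was at 561, 574 and 541 CPM in YAP-S127A against 6.25, 6.72 and 6.12 in YAP-5SA and 10.5, 10.3, 8.76, 14.2 and 12.3 in TAZ-S89A. Col15a1, a collagen of the basement membrane zone, was at 126, 119.8 and 99.6 CPM in YAP-S127A against 0.214, 0.191 and 0.121 in YAP-5SA and 0.425, 0.423, 0.319, 0.285 and 0.376 in TAZ-S89A. No library of another group came within 7-fold of YAP-S127A for Col1a1, and YAP-5SA stood above TAZ-S89A there but below it for Col3a1. The log2 fold changes were 4.88 (SE 0.19, adjusted p = 6.35e-11), 6.05 (SE 0.16, adjusted p = 2.11e-12) and 8.80 (SE 0.15, adjusted p = 1.27e-13) in that order.

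Col6a3, a chain of the microfibrillar type VI collagen, was at 88 ± 8.63 CPM in YAP-S127A against 0.711 ± 0.243 in YAP-5SA and 0.406 ± 0.0923 in TAZ-S89A (log2 fold change 7.34, SE 0.18). Col11a1, a minor fibrillar collagen of cartilage and activated fibroblasts, was at 9.25 ± 0.963, 0.117 ± 0.0194 and 0 ± 0 CPM in the 3 groups. Col1a2, the second chain of type I collagen, did not follow Col1a1, with 2354, 2325 and 2139 CPM in YAP-S127A against 14.7, 17.8 and 16.1 in YAP-5SA and 2997, 3056, 2021, 1500.4 and 1518 in TAZ-S89A. Here TAZ-S89A overlapped YAP-S127A and only YAP-5SA was low, with differences of 7.13 (SE 0.41, adjusted p = 6.13e-09) from YAP-5SA and 0.03 (SE 0.28, adjusted p = 0.924) from TAZ-S89A. Per length, YAP-S127A held 514 nRPKM of Col1a1, 363 nRPKM of Col1a2 and 82.4 nRPKM of Col3a1 (RPKM scaled by the authors). Col18a1, a basement membrane collagen that holds endostatin, was the single lower member, at 54.9 ± 3.57 CPM in YAP-S127A against 129.5 ± 19.1 in YAP-5SA and 322 ± 16.9 in TAZ-S89A (log2 fold change -1.90, SE 0.15).

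Of 18 matrix glycoproteins and proteoglycans, 14 were called higher and 2 lower, with a median log2 fold change of 2.93, and 11 of those higher had no overlap. Bgn, a small proteoglycan that binds collagen fibrils, was at 1112, 1159 and 1019.9 CPM in YAP-S127A against 0.909, 0.813 and 0.678 in YAP-5SA and 2.85, 2.05, 2.52, 3.79 and 3.17 in TAZ-S89A. Thbs2, an antiangiogenic thrombospondin, was at 158, 157 and 149 CPM in YAP-S127A against 0.401, 0.406 and 0.218 in YAP-5SA and 0.0472, 0.0446, 0.203, 0.0815 and 0.0417 in TAZ-S89A. Both were above 100 CPM in every YAP-S127A library and below 4 CPM in every other. Their log2 fold changes were 9.50 (SE 0.22, adjusted p = 1.24e-12) and 9.81 (SE 0.22, adjusted p = 8.35e-13). Fn1, the fibronectin gene, was at 4258, 4249.5 and 3859.6 CPM in YAP-S127A against 284, 224 and 297 in YAP-5SA and 1686, 1498, 1125, 1625 and 1517 in TAZ-S89A (log2 fold change 2.70, SE 0.20), and TAZ-S89A stood between the YAP groups.

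Of the 22 enzymes that mature or remodel collagen, 14 were called higher and 5 lower, 11 and 4 with no overlap, with a median of 0.926. Lox, the lysyl oxidase that crosslinks collagen and elastin, was at 145, 145 and 157 CPM in YAP-S127A against 3.39, 3.68 and 3.97 in YAP-5SA and 0.755, 0.713, 1.3, 1.02 and 0.668 in TAZ-S89A (log2 fold change 6.36, SE 0.15, adjusted p = 1.28e-12). Its relative Loxl1 was at 59 ± 1.19 CPM in YAP-S127A against 6.23 ± 0.469 in YAP-5SA and 9.37 ± 1.32 in TAZ-S89A (log2 fold change 2.95, SE 0.11). P4ha3, a subunit of prolyl 4-hydroxylase, was at 48.8 ± 1.71 CPM in YAP-S127A against 0.586 ± 0.096 in YAP-5SA and 8.06 ± 0.505 in TAZ-S89A (log2 fold change 4.48, SE 0.11). Family members went in both directions, since Loxl4 was lower at 29.6 ± 1.46 CPM in YAP-S127A against 148 ± 6.52 in YAP-5SA and 77.6 ± 17 in TAZ-S89A (log2 fold change -1.86, SE 0.17). Lower were also Mmp10, a stromelysin, at 0.0386 ± 0.0236 CPM in YAP-S127A against 0.438 ± 0.103 in YAP-5SA and 0.381 ± 0.246 in TAZ-S89A (log2 fold change -3.34, SE 0.68), and the gelatinase gene Mmp9, with 3 counts in YAP-S127A and 0.0241 ± 0.0225, 0.199 ± 0.0387 and 0.803 ± 0.668 CPM in the 3 groups. Mmp9 and Mmp10 were under 2 CPM in every library.

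Mesenchymal genes moved with the matrix genes. Of 14 tested markers of mesenchymal and stellate cells, 10 were called higher, 9 of them with no overlap, and 4 were not called. Without YAP-5SA replicate 2, 1 was called lower. Their median log2 fold change was 4.96, or 4.72 with the gene that has a group at 0 counts put at its bound. The list, with 14 of 20 members tested, summed to 7189 to 8366 CPM in YAP-S127A against 6686 to 7370 in YAP-5SA and 3167 to 5960 in TAZ-S89A. Des and Lrat, which define resting stellate cells, Ngfr, Hand2, Myh11 and Rgs5 were too low to test. Whether cells of such a type were among those sequenced was not tested, and in bulk RNA more cells of a type and more RNA per cell cannot be told apart.

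Pdgfra, a receptor for platelet-derived growth factors on fibroblasts, was at 103, 106 and 97.4 CPM in YAP-S127A against 1.07, 1.27 and 1.33 in YAP-5SA and 0.118, 0.134, 0.232, 0.0815 and 0.167 in TAZ-S89A. Pdgfrb, the related receptor of pericytes and stellate cells, was at 491, 493 and 438 CPM in YAP-S127A against 1.18, 1.19 and 0.992 in YAP-5SA and 315, 299.5, 231, 253 and 241 in TAZ-S89A. Cspg4, a pericyte proteoglycan, was at 31.1, 30.4 and 28.1 CPM in YAP-S127A against 0.0534, 0.119 and 0.145 in YAP-5SA and 0.142, 0.0223, 0.029, 0.163 and 0 in TAZ-S89A. YAP-S127A was the highest group for each, but for Pdgfrb TAZ-S89A stood close below it and YAP-5SA near 1 CPM. The differences of Pdgfrb were 8.72 (SE 0.26, adjusted p = 2.58e-11) from YAP-5SA and 0.82 (SE 0.16, adjusted p = 5.99e-04) from TAZ-S89A. The contrast gave 7.90 (SE 0.15, adjusted p = 1.90e-13) for Pdgfra and 8.36 (SE 0.28, adjusted p = 1.55e-11) for Cspg4.

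Acta2, smooth muscle actin, was at 403, 462 and 478 CPM in YAP-S127A against 2.94, 2.87 and 2.52 in YAP-5SA and 55.1, 49.4, 99.6, 30.3 and 30.7 in TAZ-S89A. Tagln, an actin-binding gene of smooth muscle, was at 1018, 1227 and 1547 CPM in YAP-S127A against 2.24, 1.65 and 3.17 in YAP-5SA and 103, 105, 172, 23.2 and 19.8 in TAZ-S89A. Both were lowest in YAP-5SA, and within TAZ-S89A replicate 3 was the highest library and replicates 4 and 5 the lowest. Acta2 had a log2 fold change of 5.21 (SE 0.30) and Tagln one of 6.48 (SE 0.56). Nes, an intermediate filament gene of progenitor and stellate cells, was at 499 ± 22 CPM in YAP-S127A against 2.25 ± 0.0431 in YAP-5SA and 88.1 ± 32.7 in TAZ-S89A (log2 fold change 5.15, SE 0.23). Fap, a surface protease of activated fibroblasts, was at 2.89 ± 0.306, 0.0506 ± 0.044 and 0.00918 ± 0.0126 CPM in the 3 groups. Vim, the vimentin gene that marks mesenchymal cells in general, was at 2549 ± 102 CPM in YAP-S127A against 4279 ± 235 in YAP-5SA and 1633 ± 311 in TAZ-S89A and was not called (log2 fold change -0.05, SE 0.22, adjusted p = 0.856).

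Of 9 tested regulators of epithelial to mesenchymal transition (EMT), 7 were called higher and 1 lower, with a median of 2.05, and 5 of those higher had no overlap. The lower one is a gene of epithelial cells rather than a factor that drives EMT. Without TAZ-S89A replicate 3, 2 were called lower. Prrx1, a homeobox factor of limb and stromal mesenchyme, was at 268, 273 and 296 CPM in YAP-S127A against 10.3, 14.2 and 9.78 in YAP-5SA and 0.212, 0.0446, 0.377, 0.122 and 0.0835 in TAZ-S89A. Snai2, a repressor of E-cadherin, was at 32.2, 31.2 and 35.9 CPM in YAP-S127A against 1.76, 1.98 and 1.79 in YAP-5SA and 2.95, 4.01, 4.44, 7.83 and 9.06 in TAZ-S89A. Foxc2, a forkhead factor of mesenchyme and vessels, was at 25.1, 20.3 and 20.4 CPM in YAP-S127A against 0.187, 0.143 and 0.387 in YAP-5SA and 0.849, 0.713, 0.725, 0.856 and 1.29 in TAZ-S89A. In all 3 genes every YAP-S127A library was at least 3-fold above every other, and the lowest group was TAZ-S89A for Prrx1 and YAP-5SA for Snai2 and Foxc2. Log2 fold changes were 7.63 (SE 0.25, adjusted p = 1.55e-11), 3.37 (SE 0.25, adjusted p = 7.54e-08) and 5.58 (SE 0.21, adjusted p = 4.57e-11).

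Epithelial adhesion genes did not go the opposite way as a group. Of 17 tested, 6 were called higher and 8 lower, 1 and 3 of them with no overlap, with a median of -0.42. Without YAP-S127A replicate 2 or 3, 2 were higher with no overlap. Cdh1, the E-cadherin gene, was the higher member with no overlap, at 12.6, 11 and 12.4 CPM in YAP-S127A against 1.66, 1.31 and 1.62 in YAP-5SA and 0.189, 0.334, 0.841, 0.285 and 0.376 in TAZ-S89A. Every YAP-S127A library was over 6-fold above every other (log2 fold change 3.92, SE 0.24, adjusted p = 9.52e-09). The tight junction gene Cgn was lower, at 30.5 ± 2.25 CPM in YAP-S127A against 109 ± 20.4 in YAP-5SA and 53.9 ± 8.37 in TAZ-S89A (log2 fold change -1.33, SE 0.16). Marveld3, of the same junctions, was at 0.0796 ± 0.0855 CPM in YAP-S127A against 0.788 ± 0.102 in YAP-5SA and 0.428 ± 0.155 in TAZ-S89A (log2 fold change -2.70, SE 0.49). The desmosome gene Pkp3 was at 0.405 ± 0.153 CPM in YAP-S127A against 2.24 ± 0.717 in YAP-5SA and 1.29 ± 0.317 in TAZ-S89A (log2 fold change -2.02, SE 0.31). Without YAP-S127A replicate 1 the value of Marveld3 was -4.14, since that library held most of the few counts of the group.

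**Figure D3:**
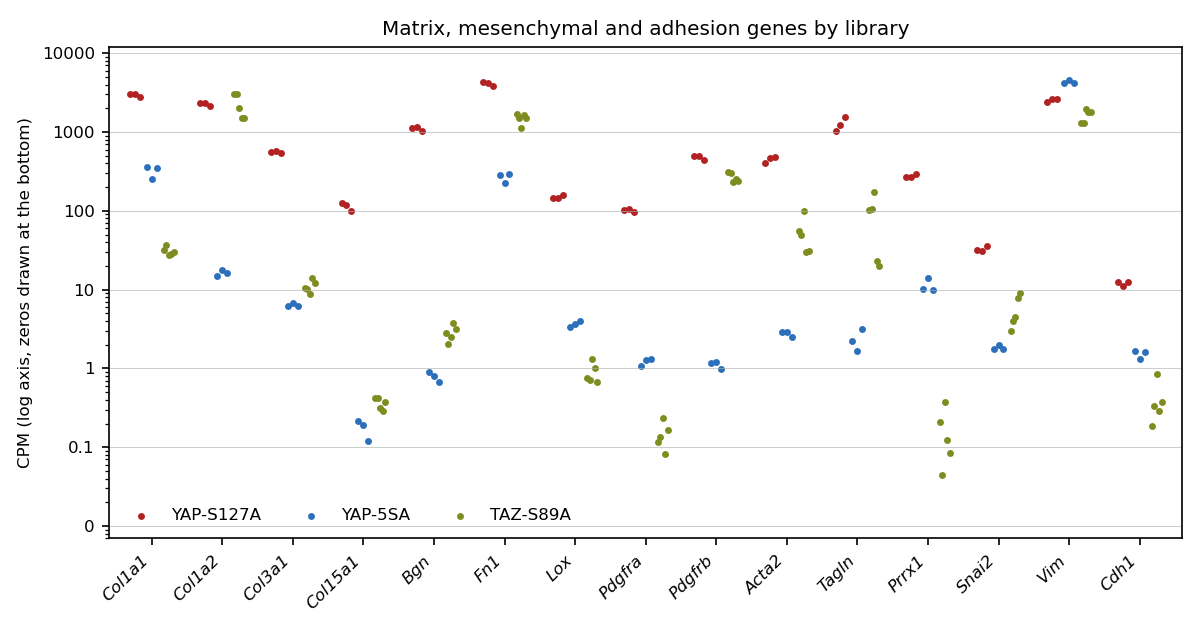
CPM on a log axis, 1 point per library, for collagen, matrix, mesenchymal, EMT and adhesion genes. YAP-S127A is apart from all other libraries for every gene shown except Col1a2, where TAZ-S89A overlaps it, and Vim, where it lies between the other groups.

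Keratins, the filaments of epithelial cells, were lower or mixed. Of 9 tested, 2 were called higher and 5 lower, and 3 of those lower had no overlap. Krt18, a keratin of simple epithelia and hepatocytes, was at 151, 153 and 187 CPM in YAP-S127A against 2603, 3419.9 and 2435 in YAP-5SA and 325, 334, 582, 420.1 and 425 in TAZ-S89A. YAP-5SA was the highest group by far, and the log2 fold change was -2.73 (SE 0.27, adjusted p = 1.15e-06). Krt80, of differentiating epithelia, was at 7.14 ± 0.777 CPM in YAP-S127A against 161 ± 13.6 in YAP-5SA and 60.8 ± 12.9 in TAZ-S89A (log2 fold change -3.79, SE 0.20). Krt14, of basal cells, was at 0.173 ± 0.0909 CPM in YAP-S127A against 3.93 ± 0.223 in YAP-5SA and 0.698 ± 0.165 in TAZ-S89A (log2 fold change -3.25, SE 0.31). The biliary keratins lay between the other groups, below YAP-5SA and above TAZ-S89A. Krt7 was at 102 ± 14.3 CPM in YAP-S127A against 1743 ± 434 in YAP-5SA and 1.41 ± 0.673 in TAZ-S89A. Krt19 was at 55.9 ± 8.47 CPM in YAP-S127A against 1371 ± 339.6 in YAP-5SA and 7.38 ± 2.76 in TAZ-S89A. In the contrast with the mean of both groups, Krt7 was called higher (log2 fold change 1.04, adjusted p = 0.00482 in edgeR). Krt19 was called lower (adjusted p = 0.0231 in edgeR), but the p was 0.101 without YAP-S127A replicate 1 and 0.0828 without replicate 2.

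Receptor tyrosine kinases, which pass on growth factor signals, were more often higher: of 23 tested, 12 were called higher and 4 lower, 10 and 3 with no overlap, with a median of 0.461. Ddr2, a receptor for fibrillar collagen, was at 1082, 1137 and 1031 CPM in YAP-S127A against 1.26, 1.39 and 1.14 in YAP-5SA and 6.02, 5.57, 5.22, 16.9 and 17.4 in TAZ-S89A (log2 fold change 8.24, SE 0.41, adjusted p = 9.81e-10). Its epithelial relative Ddr1 went the other way, at 84.1, 82.3 and 76.4 CPM in YAP-S127A against 134, 109 and 142 in YAP-5SA and 99.1, 93.8, 88.8, 103 and 98.2 in TAZ-S89A (log2 fold change -0.46, SE 0.12, adjusted p = 0.00548). Mertk, a receptor for apoptotic cells, was at 31.1 ± 1.16 CPM in YAP-S127A against 2.54 ± 0.222 in YAP-5SA and 0.0431 ± 0.0262 in TAZ-S89A (log2 fold change 6.53, SE 0.16). Fgfr1, a receptor of fibroblast growth factors, was at 195 ± 11.7 CPM in YAP-S127A against 19.7 ± 2.12 in YAP-5SA and 53.4 ± 4.08 in TAZ-S89A (log2 fold change 2.59, SE 0.11). Axl, a receptor for GAS6 and a known YAP target, was higher by less, at 1046 ± 51.7 CPM in YAP-S127A against 762 ± 85 in YAP-5SA and 464 ± 37.4 in TAZ-S89A (log2 fold change 0.81, SE 0.16). Met, the receptor of hepatocyte growth factor, was lower at 80.9 ± 1.63 CPM in YAP-S127A against 138 ± 5.56 in YAP-5SA and 222 ± 50.5 in TAZ-S89A (log2 fold change -1.11, SE 0.18). Ror2, a receptor for noncanonical Wnt signals, was lower at 0.937 ± 0.114 CPM in YAP-S127A against 5.42 ± 0.922 in YAP-5SA and 7.84 ± 1.88 in TAZ-S89A (log2 fold change -2.78, SE 0.23).

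Integrin and laminin genes went in both directions. Of 28 tested, 13 were called higher and 10 lower, 8 and 6 with no overlap, with a median of 0.237. Itga11, the integrin chain that binds fibrillar collagen on fibroblasts, was at 36.5, 38.8 and 31.8 CPM in YAP-S127A against 0.294, 0.0478 and 0.0242 in YAP-5SA and 0.354, 0.401, 0.116, 0.0815 and 0.0417 in TAZ-S89A (log2 fold change 7.74, SE 0.36). Itga1, of another collagen receptor, was at 5.9 ± 0.253 CPM in YAP-S127A against 0.196 ± 0.09 in YAP-5SA and 0.114 ± 0.0881 in TAZ-S89A (log2 fold change 5.22, SE 0.30). Itga8, of mesenchymal cells, was at 3.87 ± 0.435, 0.025 ± 0.0243 and 0.00472 ± 0.0106 CPM in the 3 groups. The laminin receptor chain Itga3 was lower, at 244, 235 and 223 CPM in YAP-S127A against 797, 607 and 815 in YAP-5SA and 681, 635, 615, 879 and 862 in TAZ-S89A (log2 fold change -1.66, SE 0.21). The epithelial laminin chain Lama3 was at 0.151 ± 0.0182 CPM in YAP-S127A against 2.12 ± 0.37 in YAP-5SA and 0.79 ± 0.331 in TAZ-S89A (log2 fold change -3.03, SE 0.38). The YAP-S127A libraries of Itga3 lay at 223 to 244 CPM, below all of the others, which started at 607.

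Among 30 growth factor ligands, 13 were called higher and 9 lower, 8 and 6 with no overlap, with a median of 0.374. Fgf7, a stromal factor that acts on epithelia, was at 22.5, 24.7 and 26.1 CPM in YAP-S127A against 1.12, 1.004 and 1.14 in YAP-5SA and 4.27, 3.65, 2.44, 3.95 and 3.34 in TAZ-S89A (log2 fold change 3.63, SE 0.15). Ptn, pleiotrophin, was at 6.36 ± 1.03, 0.0161 ± 0.0279 and 0.91 ± 0.462 CPM in the 3 groups. Igf2, the fetal insulin-like growth factor, was at 1.33 ± 0.172 CPM in YAP-S127A against 0.231 ± 0.174 in YAP-5SA and 0.554 ± 0.0837 in TAZ-S89A (log2 fold change 1.90, SE 0.29). Vegfa, the main factor of vessel growth, was at 356 ± 26.1 CPM in YAP-S127A against 48.4 ± 8.04 in YAP-5SA and 197 ± 42 in TAZ-S89A (log2 fold change 1.87, SE 0.17). The ligands of platelet-derived growth factor receptors were divided. Pdgfb was lower at 20.7 ± 2.94 CPM in YAP-S127A against 62.4 ± 8.22 in YAP-5SA and 110.5 ± 24.2 in TAZ-S89A (log2 fold change -2.01, SE 0.19). Pdgfc was lower too, at 13.5 ± 1.85 CPM in YAP-S127A against 31.3 ± 5.14 in YAP-5SA and 73 ± 10.1 in TAZ-S89A (log2 fold change -1.82, SE 0.16). Pdgfd was higher at 19.4 ± 2.48 CPM in YAP-S127A against 10.2 ± 3.53 in YAP-5SA and 0.18 ± 0.174 in TAZ-S89A (log2 fold change 3.80, SE 0.30). Tgfa, a ligand of the epidermal growth factor receptor, was at 6.08 ± 0.198 CPM in YAP-S127A against 23.4 ± 3.17 in YAP-5SA and 14.7 ± 2.65 in TAZ-S89A (log2 fold change -1.60, SE 0.16).

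Il11 and Il6, which belong to 1 cytokine family, were higher in YAP-S127A, but other ligands of the family were not. Il11, a cytokine of fibroblast activation, was at 108, 107 and 128 CPM in YAP-S127A against 0.668, 0.86 and 0.896 in YAP-5SA and 3.54, 3.94, 4.87, 6.85 and 6.64 in TAZ-S89A (log2 fold change 5.81, SE 0.19, adjusted p = 1.53e-11). Il6 was at 22.1, 19.5 and 20.5 CPM in YAP-S127A against 0.347, 0.239 and 0.266 in YAP-5SA and 0.637, 0.936, 0.464, 0.938 and 1.46 in TAZ-S89A (log2 fold change 5.38, SE 0.23, adjusted p = 1.62e-10). In both genes YAP-5SA was the lowest group, and all 8 other libraries were below 7 CPM. Clcf1, another ligand of the family, was called lower with overlapping libraries, at 68.6 ± 5.42 CPM in YAP-S127A against 198 ± 41 in YAP-5SA and 90.4 ± 20.6 in TAZ-S89A (log2 fold change -0.97, SE 0.19, adjusted p = 7.42e-04). The ligand gene Lif was at 34.3 ± 1.92 CPM in YAP-S127A against 94.7 ± 19 in YAP-5SA and 26.3 ± 8.85 in TAZ-S89A and was not called (log2 fold change -0.54, SE 0.22, adjusted p = 0.0529), but was called lower in edgeR without YAP-5SA replicate 2 (adjusted p = 0.0347), TAZ-S89A replicate 2 (adjusted p = 0.0426) or TAZ-S89A replicate 3 (adjusted p = 0.0151). The receptor chain Osmr of this family was higher, at 71.5 ± 1.37 CPM in YAP-S127A against 29.4 ± 2.38 in YAP-5SA and 46.9 ± 5.001 in TAZ-S89A (log2 fold change 0.95, SE 0.11). Il6ra, the receptor chain specific to Il6, was lower at 7.53 ± 0.514 CPM in YAP-S127A against 22.1 ± 5.17 in YAP-5SA and 29.8 ± 4.22 in TAZ-S89A (log2 fold change -1.77, SE 0.17). Tslp, an epithelial and stromal cytokine, was at 7.26 ± 0.348, 0.056 ± 0.0601 and 0 ± 0 CPM in the 3 groups. Csf1, the growth factor of macrophages, was at 1545 ± 90.5 CPM in YAP-S127A against 909.9 ± 154 in YAP-5SA and 884 ± 110.5 in TAZ-S89A (log2 fold change 0.79, SE 0.19). Il1rn, the decoy ligand of the interleukin 1 receptor, was at 1.29 ± 0.181 CPM in YAP-S127A against 2.2 ± 0.274 in YAP-5SA and 73.3 ± 13.2 in TAZ-S89A (log2 fold change -3.31, SE 0.19). Over the list of 20 interleukins, colony-stimulating factors and receptors tested, 10 were called higher and 6 lower, 8 and 2 with no overlap, with a median of 0.54. Without YAP-S127A replicate 1, 4 were lower with no overlap.

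Chemokines went mostly the other way, with 2 of 15 tested called higher and 6 lower, 1 and 5 with no overlap, and a median of -0.971. The count called higher was 1 without YAP-S127A replicate 2 or 3 or YAP-5SA replicate 1 or 3, and 2 were higher with no overlap without YAP-S127A replicate 1 or YAP-5SA replicate 2. Cxcl5, which attracts neutrophils, was at 3.99, 3.8 and 3.86 CPM in YAP-S127A against 23.4, 23.8 and 22.9 in YAP-5SA and 152, 172, 148, 161 and 177 in TAZ-S89A (log2 fold change -3.98, SE 0.14, adjusted p = 1.90e-11). Ccl9, which attracts myeloid cells, was at 37.2, 38.1 and 43.3 CPM in YAP-S127A against 272, 298 and 219 in YAP-5SA and 915, 937, 853, 235 and 247 in TAZ-S89A (log2 fold change -3.37, SE 0.48), and within TAZ-S89A replicates 4 and 5 stood at the level of YAP-5SA and below the other 3 libraries. Ccl8, a monocyte chemokine, was below 2 CPM in every library, at 0.0646 ± 0.0645 CPM in YAP-S127A against 0.801 ± 0.268 in YAP-5SA and 1.01 ± 0.492 in TAZ-S89A. Cxcl12, the stromal chemokine that binds the receptor CXCR4, was the higher member with no overlap, at 119, 119.9 and 119 CPM in YAP-S127A against 0.802, 1.41 and 0.992 in YAP-5SA and 17.6, 17.8, 19.3, 34.7 and 31.2 in TAZ-S89A (log2 fold change 4.55, SE 0.22, adjusted p = 6.17e-10). YAP-5SA was near 1 CPM for Cxcl12 and TAZ-S89A between the YAP groups.

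Of 26 genes of AP-1 and of feedback on the ERK kinases, 15 were called higher and 5 lower, 10 and 3 with no overlap, with a median of 0.515. Spry4, a feedback inhibitor of receptor tyrosine kinases, was at 30.7, 29.5 and 24.8 CPM in YAP-S127A against 7.24, 8.1 and 7.6 in YAP-5SA and 0.212, 0.0223, 0.087, 0.489 and 0.459 in TAZ-S89A (log2 fold change 4.44, SE 0.28). The ETS factors that ERK induces were higher in all YAP-S127A libraries. Etv4 was at 163 ± 8.68 CPM in YAP-S127A against 49.1 ± 8.08 in YAP-5SA and 20.5 ± 6.28 in TAZ-S89A (log2 fold change 2.36, SE 0.18). Etv5 was at 19.8 ± 0.315 CPM in YAP-S127A against 7.46 ± 1.41 in YAP-5SA and 1.44 ± 0.822 in TAZ-S89A (log2 fold change 2.63, SE 0.27). Etv1 was at 2.56 ± 0.613, 0.00807 ± 0.014 and 0.0584 ± 0.0624 CPM in the 3 groups. Egr2, an immediate early factor, was at 12.3 ± 0.737 CPM in YAP-S127A against 0.158 ± 0.0113 in YAP-5SA and 1.49 ± 0.379 in TAZ-S89A (log2 fold change 4.65, SE 0.19). The AP-1 subunits went both ways. Jund was lower at 31.2 ± 2.66 CPM in YAP-S127A against 76 ± 9.5 in YAP-5SA and 128 ± 32.4 in TAZ-S89A (log2 fold change -1.66, SE 0.20). Junb was at 52.2 ± 3.47 CPM in YAP-S127A against 97.8 ± 8.26 in YAP-5SA and 100.3 ± 15.1 in TAZ-S89A (log2 fold change -0.92, SE 0.14). Fosl2 was at 70.8 ± 6.44 CPM in YAP-S127A against 148 ± 25.2 in YAP-5SA and 114 ± 12.9 in TAZ-S89A (log2 fold change -0.87, SE 0.15). Jun was higher at 40.3 ± 3.12 CPM in YAP-S127A against 13.5 ± 3.13 in YAP-5SA and 27.8 ± 6.32 in TAZ-S89A (log2 fold change 1.05, SE 0.17). Fosb was at 5.22 ± 0.184 CPM in YAP-S127A against 3.06 ± 0.865 in YAP-5SA and 1.73 ± 0.506 in TAZ-S89A (log2 fold change 1.19, SE 0.21). The spread of Jund and Spry4 within TAZ-S89A followed the sample ID series, with replicates 4 and 5 above the other 3 libraries.

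The genes of YAP, TAZ and their DNA-binding partners differed in both directions, with 4 of 8 tested called higher and 3 lower, 3 and 2 with no overlap, and a median of 0.274. Without YAP-S127A replicate 1 or 2, 1 was lower with no overlap. Yap1 was at 209, 197 and 185 CPM in YAP-S127A against 162, 173 and 179 in YAP-5SA and 55.3, 50.8, 66, 82.3 and 78 in TAZ-S89A. Every YAP-S127A library was above all others, yet the distance to YAP-5SA was not called at 0.20 (SE 0.19, adjusted p = 0.385), while that to TAZ-S89A was 1.57 (SE 0.17, adjusted p = 2.23e-06). Wwtr1, the gene of TAZ, was at 65.8, 65.3 and 68.2 CPM in YAP-S127A against 130.5, 152 and 139 in YAP-5SA and 69.2, 67.2, 86.8, 96.3 and 91.9 in TAZ-S89A. It was called lower at -0.70 (SE 0.14, adjusted p = 8.79e-04), with YAP-S127A below YAP-5SA but overlapping TAZ-S89A.

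Tead1, at 32.1 nRPKM the highest TEAD gene of YAP-S127A per length, was at 422, 392 and 356 CPM in YAP-S127A against 245, 203 and 264 in YAP-5SA and 125, 114, 78, 125 and 126 in TAZ-S89A (log2 fold change 1.25, SE 0.17, adjusted p = 2.32e-05). Tead3 was at 44.7, 43.9 and 39.5 CPM in YAP-S127A against 12.8, 8.13 and 13.2 in YAP-5SA and 21.3, 20.5, 17.9, 16.7 and 17 in TAZ-S89A (log2 fold change 1.55, SE 0.14, adjusted p = 5.26e-07). For Tead1 TAZ-S89A was the lowest group, and for Tead3 YAP-5SA was. Tead4 was called at 0.44 (SE 0.12) with overlapping libraries (33.1 ± 3.99, 26.3 ± 3.57 and 22.7 ± 1.51 CPM in the 3 groups), and Tead2, at 66 ± 2.05, 40.2 ± 2.41 and 93.1 ± 7.12 CPM, lay between the other groups and was not called (log2 fold change 0.11, SE 0.10, adjusted p = 0.394). Of the VGLL cofactors, which compete with YAP for TEAD, Vgll4 was lower at 27.9 ± 0.215 CPM in YAP-S127A against 52.5 ± 1.11 in YAP-5SA and 38.6 ± 5.71 in TAZ-S89A (log2 fold change -0.69, SE 0.12). Vgll3 was at 32.1 ± 1.81 CPM in YAP-S127A against 38.1 ± 1.14 in YAP-5SA and 47.2 ± 9.25 in TAZ-S89A (log2 fold change -0.40, SE 0.14). The call of Vgll3 (adjusted p = 0.0293) ended without any one of the YAP-S127A libraries, at adjusted p-values of 0.0892, 0.118 and 0.0584 without replicates 1, 2 and 3.

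Listed targets of YAP and TAZ likewise showed no common direction: 12 of 25 tested were called higher and 7 lower, 7 and 5 with no overlap, with a median of 0.187. Ccn2, a matricellular protein and the most used reporter of YAP activity, was at 726, 695 and 703 CPM in YAP-S127A against 639, 616 and 647 in YAP-5SA and 162, 148, 213, 321 and 327 in TAZ-S89A. YAP-S127A was the highest group, at a distance of 0.16 (SE 0.29, adjusted p = 0.67) from YAP-5SA and 1.60 (SE 0.26, adjusted p = 1.24e-04) from TAZ-S89A. Its relative Ccn1 lay between the other groups, at 362 ± 18.7 CPM in YAP-S127A against 520.2 ± 34.4 in YAP-5SA and 254 ± 49.6 in TAZ-S89A, and was not called (log2 fold change -0.01, SE 0.18, adjusted p = 0.978). Ankrd1, a muscle ankyrin repeat gene, was at 253 ± 5.8 CPM in YAP-S127A against 132 ± 5.16 in YAP-5SA and 288 ± 4.8 in TAZ-S89A. Amotl2, an angiomotin that binds YAP, was at 683 ± 38.7 CPM in YAP-S127A against 813 ± 144 in YAP-5SA and 271 ± 24.6 in TAZ-S89A. Both lay between the means of the other groups. They were called higher in the contrast (adjusted p = 0.0203 and adjusted p = 0.0145 in edgeR). The adjusted p became 0.0861, 0.0658 and 0.0636 for Ankrd1 without YAP-S127A replicates 1, 2 and 3, and 0.0664 and 0.0589 for Amotl2 without replicates 1 and 2.

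Rbms3, an RNA-binding gene, was the target farthest above, at 30.2, 27.7 and 28.3 CPM in YAP-S127A against 0.0802, 0.119 and 0.121 in YAP-5SA and 5.31, 5.48, 3.91, 5.38 and 5.3 in TAZ-S89A (log2 fold change 5.26, SE 0.15, adjusted p = 3.10e-12). Arhgef17, an activator of small GTPases, was at 186 ± 11.6 CPM in YAP-S127A against 92.1 ± 18.2 in YAP-5SA and 122 ± 14.3 in TAZ-S89A (log2 fold change 0.81, SE 0.15). Tgfb2, a transforming growth factor, was at 40.7 ± 2.37 CPM in YAP-S127A against 19 ± 1.31 in YAP-5SA and 26.5 ± 2.28 in TAZ-S89A (log2 fold change 0.86, SE 0.10). Crim1, a membrane protein that binds BMPs, was at 239 ± 12.8 CPM in YAP-S127A against 182 ± 18.5 in YAP-5SA and 84 ± 24.6 in TAZ-S89A (log2 fold change 0.95, SE 0.19). F3, the tissue factor that starts coagulation, was below all others, at 15.9, 14.1 and 16.6 CPM in YAP-S127A against 203, 249 and 204 in YAP-5SA and 39.3, 36.8, 49.3, 58.2 and 58.3 in TAZ-S89A (log2 fold change -2.73, SE 0.19, adjusted p = 3.20e-08). Igfbp3, which binds insulin-like growth factors, was at 55.2, 59.1 and 69.96 CPM in YAP-S127A against 665, 929.7 and 635 in YAP-5SA and 137, 122, 199, 135 and 135 in TAZ-S89A (log2 fold change -2.42, SE 0.22, adjusted p = 6.08e-07). Gadd45b, a stress gene, was at 26.3 ± 1.68 CPM in YAP-S127A against 83.6 ± 9.38 in YAP-5SA and 88.5 ± 22.4 in TAZ-S89A (log2 fold change -1.71, SE 0.18). For F3 and Igfbp3, YAP-5SA stood above TAZ-S89A, so that the YAP groups were the most distant pair.

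Of 22 Hippo kinases and regulators, 9 were called higher and 5 lower, 6 and 3 with no overlap, with a median of 0.14. Sav1, the scaffold of the MST kinases, was at 144, 154 and 159 CPM in YAP-S127A against 68.5, 76.6 and 67.5 in YAP-5SA and 70.5, 66.5, 78.6, 79.3 and 80.9 in TAZ-S89A (log2 fold change 1.06, SE 0.11). Map4k4, a kinase that acts on LATS beside them, was at 477 ± 28.2 CPM in YAP-S127A against 231 ± 33.5 in YAP-5SA and 205 ± 22.1 in TAZ-S89A (log2 fold change 1.13, SE 0.15). Rassf1, which binds the MST kinases, was at 160.0 ± 13.3 CPM in YAP-S127A against 75.9 ± 8.18 in YAP-5SA and 41.2 ± 8.91 in TAZ-S89A (log2 fold change 1.52, SE 0.15). Wwc1, which encodes the upstream regulator KIBRA, was lower, at 61.2, 60.5 and 58.7 CPM in YAP-S127A against 229.9, 182 and 234 in YAP-5SA and 120.2, 109.8, 102, 138 and 143 in TAZ-S89A (log2 fold change -1.43, SE 0.16). Stk4, an MST kinase, was at 38.5 ± 1.51 CPM in YAP-S127A against 68.7 ± 1.7 in YAP-5SA and 58.4 ± 9.68 in TAZ-S89A (log2 fold change -0.72, SE 0.13). Mob1b, which activates LATS, was at 42.7 ± 3.76 CPM in YAP-S127A against 55.3 ± 3.31 in YAP-5SA and 60.9 ± 6.7 in TAZ-S89A (log2 fold change -0.44, SE 0.12).

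Genes of the TGF-beta and BMP pathway were split as well, with 13 of 29 called higher and 9 lower, 8 and 5 with no overlap, and a median of 0.0588. Ltbp2, a latent TGF-beta binding protein of the matrix, was at 147, 139 and 124 CPM in YAP-S127A against 0.24, 0.454 and 0.532 in YAP-5SA and 9.72, 11.3, 6.81, 9.3 and 8.06 in TAZ-S89A (log2 fold change 6.14, SE 0.18). Grem1, a secreted BMP antagonist, was at 6.55 ± 1.09 CPM in YAP-S127A against 0.694 ± 0.113 in YAP-5SA and 0.0956 ± 0.0725 in TAZ-S89A (log2 fold change 4.55, SE 0.26). Bmp6 was at 4.34 ± 0.437 CPM in YAP-S127A against 0.4 ± 0.0481 in YAP-5SA and 1.3 ± 0.164 in TAZ-S89A (log2 fold change 2.59, SE 0.16). Nog, the BMP antagonist noggin, was lower at 1.43 ± 0.0867 CPM in YAP-S127A against 5.35 ± 0.851 in YAP-5SA and 5.71 ± 1.61 in TAZ-S89A (log2 fold change -1.95, SE 0.23). Bmp7 was lower at 8.88 ± 1.39 CPM in YAP-S127A against 27.4 ± 0.502 in YAP-5SA and 35.5 ± 5.01 in TAZ-S89A (log2 fold change -1.81, SE 0.15). The BMP-induced gene Id2 was lower at 52.6 ± 3.77 CPM in YAP-S127A against 128 ± 10.6 in YAP-5SA and 169 ± 18.8 in TAZ-S89A (log2 fold change -1.48, SE 0.14).

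Of 33 tested genes of Wnt signalling, 14 were called higher and 10 lower, 10 and 8 with no overlap. The median was 0.251, but -0.155 with the 2 genes that have a group at 0 counts put at their bound. Inhibitors were among the highest members. Dkk2, a secreted inhibitor, was at 72.4, 76.4 and 76.3 CPM in YAP-S127A against 0.267, 0.0239 and 0.0968 in YAP-5SA and 1.53, 1.58, 1.33, 1.92 and 1.67 in TAZ-S89A (log2 fold change 7.37, SE 0.22). Dkk3, of the same family, was at 82, 88.4 and 101 CPM in YAP-S127A against 0.134, 0.143 and 0.387 in YAP-5SA and 0.165, 0.0446, 0.116, 0 and 0 in TAZ-S89A (log2 fold change 9.40, SE 0.29). Nkd2, an intracellular inhibitor, was at 4.27 ± 0.36 CPM in YAP-S127A against 0.0765 ± 0.0549 in YAP-5SA and 0.0349 ± 0.0389 in TAZ-S89A (log2 fold change 6.28, SE 0.34). Notum, an inhibitor that strips the lipid from Wnt proteins, was lower at 0.046 ± 0.019 CPM in YAP-S127A against 0.205 ± 0.0915 in YAP-5SA and 0.635 ± 0.0714 in TAZ-S89A (log2 fold change -2.92, SE 0.45). Of the ligands, 4 were lower with no overlap and 1 was higher. Wnt7b was lower at 9.23, 9.32 and 6.86 CPM in YAP-S127A against 119, 103 and 118 in YAP-5SA and 103, 102, 99.1, 122 and 121 in TAZ-S89A (log2 fold change -3.72, SE 0.17, adjusted p = 2.86e-10). Wnt4 was lower at 1.79 ± 0.238 CPM in YAP-S127A against 16.1 ± 1.56 in YAP-5SA and 15.1 ± 2.48 in TAZ-S89A (log2 fold change -3.12, SE 0.18). The log2 fold changes were -4.36 for Wnt10a and -1.89 for Wnt10b, and 3.50 for Wnt5b, the higher ligand, which overlaps another gene and stayed near 1 CPM. Rspo3, an R-spondin that strengthens the signal through Lgr5, had 3 counts in YAP-S127A and 0.0311 ± 0.0329, 0.849 ± 0.217 and 0.26 ± 0.0975 CPM in the 3 groups. For Wnt7b and Wnt4 the other groups lay at like levels and every YAP-S127A library far below them.

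Notch genes showed 6 of 15 called higher and 6 lower, 3 in each direction with no overlap, with a median of -0.403. Without YAP-5SA replicate 2, 5 were lower with no overlap. Jag1, a ligand, was higher at 116, 115 and 107 CPM in YAP-S127A against 25.8, 18.4 and 23.9 in YAP-5SA and 56.8, 57.4, 40.1, 51.7 and 49.2 in TAZ-S89A (log2 fold change 1.73, SE 0.13). Jag2, a related ligand, was lower at 12.7 ± 1.33 CPM in YAP-S127A against 48.5 ± 9.96 in YAP-5SA and 36.7 ± 4.11 in TAZ-S89A (log2 fold change -1.74, SE 0.16). Dll1, another ligand, was at 0.267 ± 0.0636 CPM in YAP-S127A against 1.61 ± 0.333 in YAP-5SA and 1.003 ± 0.348 in TAZ-S89A (log2 fold change -2.21, SE 0.33). The Notch target Hes1 was higher at 46.8 ± 1.59 CPM in YAP-S127A against 33.2 ± 0.389 in YAP-5SA and 19.7 ± 2.29 in TAZ-S89A (log2 fold change 0.87, SE 0.10). The receptor gene Notch4 was higher at 2.07 ± 0.182 CPM in YAP-S127A against 0.344 ± 0.137 in YAP-5SA and 1.61 ± 0.165 in TAZ-S89A (log2 fold change 1.48, SE 0.21). Dtx4, a ubiquitin ligase of the pathway, was lower at 39.3 ± 2.66 CPM in YAP-S127A against 77.9 ± 7.14 in YAP-5SA and 116 ± 16.2 in TAZ-S89A (log2 fold change -1.27, SE 0.14).

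Guidance molecules, which steer axons and vessels, were more often lower, with 9 of 31 called higher and 13 lower, 5 and 8 with no overlap, and a median of -0.158. Slit2, a ligand of Robo receptors, was at 56, 56.1 and 48.4 CPM in YAP-S127A against 0.962, 0.956 and 0.823 in YAP-5SA and 8.14, 5.5, 4.78, 12.4 and 12.4 in TAZ-S89A (log2 fold change 4.25, SE 0.25). Slit3 was at 1.31 ± 0.17 CPM in YAP-S127A against 0.0322 ± 0.037 in YAP-5SA and 0.17 ± 0.0787 in TAZ-S89A (log2 fold change 4.09, SE 0.37). Epha5, an ephrin receptor, was at 5.32 ± 0.408 CPM in YAP-S127A against 0.138 ± 0.0745 in YAP-5SA and 0.118 ± 0.0495 in TAZ-S89A (log2 fold change 5.33, SE 0.24). Ntn1, netrin 1, was lower at 0.156, 0.23 and 0.333 CPM in YAP-S127A against 1.76, 1.58 and 2.2 in YAP-5SA and 26.1, 23.2, 23, 47.5 and 44.1 in TAZ-S89A (log2 fold change -5.03, SE 0.39). Of the semaphorins, Sema3c was at 139 ± 25.6 CPM in YAP-S127A against 880.4 ± 316 in YAP-5SA and 539 ± 204 in TAZ-S89A (log2 fold change -2.31, SE 0.32). Sema3d was at 0.0775 ± 0.0298 CPM in YAP-S127A against 0.362 ± 0.0681 in YAP-5SA and 2.3 ± 0.526 in TAZ-S89A (log2 fold change -3.46, SE 0.38).

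Where imprinted and oncofetal genes were called, they were higher in YAP-S127A than the mean of the other groups. Some of them lay between the other groups. Of 18 tested, 14 were called higher, 10 of them with no overlap, and 4 were not called, with a median of 1.6. Peg3, a zinc finger gene of the paternal chromosome, was at 465, 446 and 410.4 CPM in YAP-S127A against 49.5, 38.6 and 54.7 in YAP-5SA and 1.72, 1.54, 1.59, 2.49 and 1.59 in TAZ-S89A (log2 fold change 5.58, SE 0.17, adjusted p = 5.50e-12). Grb10, an imprinted adaptor of insulin receptors, was at 151, 150.4 and 138 CPM in YAP-S127A against 9.7, 10.9 and 10.2 in YAP-5SA and 14.2, 12.9, 12.6, 19.1 and 17.3 in TAZ-S89A (log2 fold change 3.55, SE 0.13, adjusted p = 3.41e-11). YAP-5SA stood above TAZ-S89A for Peg3 and below it for Grb10. H19, a noncoding RNA of the fetal liver next to Igf2, was at 3.42 ± 0.292, 0.194 ± 0.0898 and 0 ± 0 CPM in the 3 groups. Trim71, a fetal RNA-binding repressor, was at 15.7 ± 1.51 CPM in YAP-S127A against 0.285 ± 0.124 in YAP-5SA and 0.146 ± 0.0592 in TAZ-S89A (log2 fold change 6.29, SE 0.22). Cdkn1c, an imprinted cell cycle inhibitor, was at 1.75 ± 0.457 CPM in YAP-S127A against 0.587 ± 0.0722 in YAP-5SA and 0.267 ± 0.21 in TAZ-S89A (log2 fold change 2.22, SE 0.38).

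Homeobox and GATA factors outside the Hox clusters included 10 of 23 called higher and 8 lower, 7 and 4 with no overlap, with a median of 0.108. Gata2, of blood and endothelial precursors, was at 7.47, 6.92 and 5.86 CPM in YAP-S127A against 0.508, 0.597 and 0.508 in YAP-5SA and 1.63, 1.47, 1.51, 1.998 and 2.42 in TAZ-S89A (log2 fold change 2.78, SE 0.17). The paralogs Msx2 and Msx1, targets of BMP signals in mesenchyme, went opposite ways. Msx2 was higher at 2.79, 2.23 and 3.03 CPM in YAP-S127A against 0.909, 0.693 and 0.75 in YAP-5SA and 0.307, 0.245, 0.406, 0.53 and 0.25 in TAZ-S89A (log2 fold change 2.37, SE 0.21). Msx1 was lower at 0.825, 0.886 and 1.36 CPM in YAP-S127A against 12.5, 12 and 9.56 in YAP-5SA and 7.31, 8.02, 11.6, 8.15 and 9.68 in TAZ-S89A (log2 fold change -3.30, SE 0.23).

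Of 29 tested Hox genes, 21 were called higher and 8 were not called. Higher with no overlap were 5 (17.2%), near the 17.9% over all tested genes. Without TAZ-S89A replicate 3, 1 was lower with no overlap. The contrast weighs TAZ-S89A, where the list summed to 7.51 to 10.89 CPM, equally with YAP-5SA, where it summed to 590.7 to 737.3, above the 104.5 to 120.1 of YAP-S127A. The median was 2.01, or 1.43 with the 7 genes that have a group at 0 counts put at their bounds. Of the members above both groups, Hoxd8 was at 2.47, 2.85 and 2.53 CPM in YAP-S127A against 0.454, 0.311 and 0.508 in YAP-5SA and 0, 0.0223, 0.029, 0 and 0.0835 in TAZ-S89A. The means of the 3 groups were 1.06 ± 0.145, 0.18 ± 0.0683 and 0 ± 0 CPM for Hoxd3, 2.25 ± 0.505, 0.834 ± 0.135 and 0.00815 ± 0.0182 CPM for Hoxd4 and 1.71 ± 0.352, 0.613 ± 0.345 and 0.492 ± 0.152 CPM for Hoxa2. The 3 Hoxd genes lie side by side in the Hoxd cluster, where reads of overlapping neighbours cannot be told apart.

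Genes of the NRF2 response, which serve glutathione supply and detoxification, were mostly lower. Of 28 tested NRF2 targets and aldehyde dehydrogenases, 6 were called higher and 19 lower, 4 and 13 with no overlap, with a median of -0.863. The list summed to 1587 to 1617 CPM in YAP-S127A against 5942 to 7251 in YAP-5SA and 1409 to 2110 in TAZ-S89A, so the summed level was apart from YAP-5SA only. Gsta1, a glutathione transferase, was at 0.0446, 0.131 and 0.25 CPM in YAP-S127A against 3.21, 3.92 and 3.05 in YAP-5SA and 0.92, 0.825, 1.1, 0.815 and 0.626 in TAZ-S89A (log2 fold change -3.62, SE 0.37). Its near copy Gsta2 was at 0.0167 ± 0.0147, 0.584 ± 0.114 and 0.163 ± 0.0463 CPM in the 3 groups, and its level is uncertain, since reads that align to both copies were not counted. Nqo1, the quinone reductase used as an NRF2 reporter, was at 0.914, 1.02 and 0.833 CPM in YAP-S127A against 28.3, 48.1 and 26.1 in YAP-5SA and 1.06, 0.914, 1.39, 0.612 and 1.13 in TAZ-S89A. It was low in YAP-S127A and TAZ-S89A alike, with -5.21 (SE 0.30, adjusted p = 6.13e-09) against YAP-5SA and -0.16 (SE 0.28, adjusted p = 0.645) against TAZ-S89A.

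The aldehyde dehydrogenases were not lower as a family. Aldh1l2, a mitochondrial enzyme of folate metabolism, was at 143, 147 and 139 CPM in YAP-S127A against 6.71, 6.45 and 7.5 in YAP-5SA and 0.661, 1.07, 0.377, 1.1 and 0.626 in TAZ-S89A (log2 fold change 5.96, SE 0.19, adjusted p = 9.81e-12). Aldh1a2, the retinoic acid synthase of mesenchyme, was at 5.26, 5.02 and 5.03 CPM in YAP-S127A against 0 in every YAP-5SA library and 0.0472, 0.0223, 0.029, 0 and 0 in TAZ-S89A. Aldh1a3, another such synthase, was at 0.8 ± 0.255 CPM in YAP-S127A against 0.169 ± 0.125 in YAP-5SA and 0.16 ± 0.0279 in TAZ-S89A (log2 fold change 2.24, SE 0.37). Each was higher in all YAP-S127A libraries, whereas Aldh3a1 was lower than in YAP-5SA by a log2 fold change of -11.36 and lower than in TAZ-S89A by -6.48.

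Genes of amino acid supply and of the unfolded protein response were more often higher than lower, with 12 of 23 called higher and 2 lower, 9 and 2 with no overlap, and a median of 0.598. Trib3, a pseudokinase that the factor ATF4 induces, was at 91.4, 96.1 and 100.4 CPM in YAP-S127A against 19, 18.9 and 17.4 in YAP-5SA and 16.9, 21.5, 31, 35.2 and 34.4 in TAZ-S89A (log2 fold change 2.08, SE 0.18, adjusted p = 2.97e-07). Psph, the last enzyme of serine synthesis, was at 268, 284 and 352 CPM in YAP-S127A against 62.1, 88 and 49.1 in YAP-5SA and 109, 129.8, 203, 117 and 126.9 in TAZ-S89A (log2 fold change 1.66, SE 0.21). The ATF4 relative Atf5 was at 336 ± 26.3 CPM in YAP-S127A against 152 ± 10.6 in YAP-5SA and 114 ± 30.4 in TAZ-S89A (log2 fold change 1.35, SE 0.18). Sesn2, a sensor of leucine, was at 55.6 ± 1.53 CPM in YAP-S127A against 31.7 ± 4.5 in YAP-5SA and 13.7 ± 3.21 in TAZ-S89A (log2 fold change 1.42, SE 0.15). Atf3, a stress-induced repressor, was lower at 15.4 ± 2.36 CPM in YAP-S127A against 55.2 ± 6.85 in YAP-5SA and 22.9 ± 3.11 in TAZ-S89A (log2 fold change -1.21, SE 0.15). Ddit4, an inhibitor of mTOR, was lower at 26.8 ± 3.71 CPM in YAP-S127A against 44.4 ± 4.66 in YAP-5SA and 45.5 ± 11.7 in TAZ-S89A (log2 fold change -0.74, SE 0.19). Hspa5, the main chaperone of the endoplasmic reticulum, was at 1354 ± 341 CPM in YAP-S127A against 1193 ± 677 in YAP-5SA and 847 ± 312 in TAZ-S89A and was not called (log2 fold change 0.43, SE 0.33, adjusted p = 0.281), though it was called higher in edgeR without YAP-5SA replicate 2 (adjusted p = 0.0465). Within TAZ-S89A, replicate 3 was the highest library for Psph at 203 CPM and still below the lowest YAP-S127A library at 268.

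Lipid genes went in both directions. Of 29 genes of fatty acid synthesis, desaturation and storage, 7 were called higher and 8 lower, 5 and 8 with no overlap, with a median of -0.171. Scd1, the stearoyl-CoA desaturase, was at 260.1, 266 and 249 CPM in YAP-S127A against 121, 111 and 124 in YAP-5SA and 0.354, 0.245, 0.435, 0.571 and 0.292 in TAZ-S89A (log2 fold change 5.28, SE 0.15, adjusted p = 4.99e-12). Fabp4, the fatty acid carrier of fat cells, was at 24.2, 25.7 and 26.4 CPM in YAP-S127A against 1.9, 2.08 and 2.03 in YAP-5SA and 0.425, 0.513, 0.551, 0.489 and 0.167 in TAZ-S89A (log2 fold change 4.75, SE 0.17). Mgll, which splits monoglycerides, was at 18.9 ± 0.579 CPM in YAP-S127A against 0.271 ± 0.0962 in YAP-5SA and 9.999 ± 1.86 in TAZ-S89A (log2 fold change 3.50, SE 0.17). Plin2, the coat protein of lipid droplets, was lower at 44.3, 46.5 and 55.3 CPM in YAP-S127A against 175, 252 and 173 in YAP-5SA and 155, 158, 315, 169 and 164 in TAZ-S89A (log2 fold change -2.01, SE 0.25). Gpam, which starts triglyceride synthesis, was at 2.74 ± 0.54 CPM in YAP-S127A against 27 ± 1.63 in YAP-5SA and 34.1 ± 5.72 in TAZ-S89A (log2 fold change -3.47, SE 0.19). Cd36, a fatty acid transporter, was below 0.5 CPM in every library, at 0.0369 ± 0.017 CPM in YAP-S127A against 0.336 ± 0.103 in YAP-5SA and 0.208 ± 0.125 in TAZ-S89A. For Scd1, TAZ-S89A was near 0 and the distance to YAP-5SA was 1.12 (SE 0.18, adjusted p = 9.80e-05).

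Of 26 genes of cholesterol synthesis and sterol control, 7 were called higher and 7 lower, 2 and 4 with no overlap, with a median of -0.164. Ebp, of the late steps of synthesis, was lower at 28.5 ± 3.61 CPM in YAP-S127A against 115 ± 27 in YAP-5SA and 83.8 ± 12 in TAZ-S89A (log2 fold change -1.79, SE 0.17). Sqle, the squalene epoxidase, was lower at 38.4 ± 2.23 CPM in YAP-S127A against 74.9 ± 5.47 in YAP-5SA and 140.4 ± 24.5 in TAZ-S89A (log2 fold change -1.42, SE 0.15). Nsdhl, another late enzyme, was lower at 17.5 ± 0.99 CPM in YAP-S127A against 34.9 ± 7.82 in YAP-5SA and 42.2 ± 10.8 in TAZ-S89A (log2 fold change -1.14, SE 0.19). Abca1, which exports cholesterol, was higher at 63.8 ± 2.17 CPM in YAP-S127A against 50.2 ± 9.56 in YAP-5SA and 1.11 ± 0.195 in TAZ-S89A (log2 fold change 3.09, SE 0.13). The value of Abca1 came from TAZ-S89A, since the distance to YAP-5SA was not called at 0.35 (SE 0.16, adjusted p = 0.0819).

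Of 29 genes of hypoxia and glycolysis, 10 were called higher and 8 lower, 6 and 5 with no overlap, with a median of -0.0261. Without TAZ-S89A replicate 5, 8 were lower with no overlap. Transporters were among the higher genes. Slc2a3, the neuronal glucose transporter, was at 22.8, 22.5 and 18.3 CPM in YAP-S127A against 0.454, 0.0956 and 0.653 in YAP-5SA and 0.0472, 0, 0.058, 0.0408 and 0 in TAZ-S89A (log2 fold change 7.53, SE 0.34). Slc16a3, which exports lactate, was at 37.4, 40.9 and 41 CPM in YAP-S127A against 4.997, 5.9 and 4.77 in YAP-5SA and 0.661, 0.98, 0.841, 1.35 and 0.835 in TAZ-S89A (log2 fold change 4.18, SE 0.15). Pfkp, a phosphofructokinase, was at 112 ± 7.96 CPM in YAP-S127A against 30.4 ± 1.94 in YAP-5SA and 33.6 ± 6.67 in TAZ-S89A (log2 fold change 1.81, SE 0.14). Ndrg1, a hypoxia and differentiation gene, was lower at 8.16, 8.13 and 9.36 CPM in YAP-S127A against 60.9, 63 and 64.6 in YAP-5SA and 175, 166, 192, 175 and 166 in TAZ-S89A (log2 fold change -3.62, SE 0.14, adjusted p = 5.82e-11). The hexokinase gene Hk1 was lower at 34.3 ± 0.763 CPM in YAP-S127A against 86.3 ± 11.8 in YAP-5SA and 64.7 ± 16.2 in TAZ-S89A (log2 fold change -1.12, SE 0.18). Pgam1, another glycolytic gene, was lower at 3.09 ± 0.0648 CPM in YAP-S127A against 6.03 ± 1.21 in YAP-5SA and 7.16 ± 2.1 in TAZ-S89A (log2 fold change -1.08, SE 0.23).

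Proliferation genes were mostly lower by small steps or not called. Of 29 tested, 4 were called higher and 14 lower, 2 and 13 with no overlap, with a median of -0.333. The 11 others were not called. Without YAP-S127A replicate 1, 9 were called lower. The list summed to 3840 to 3958 CPM in YAP-S127A against 5743 to 6153 in YAP-5SA and 3179 to 4083 in TAZ-S89A. The summed level was thus apart from YAP-5SA only. Rrm2, the ribonucleotide reductase subunit of S phase, was at 93.2, 99.5 and 111 CPM in YAP-S127A against 305, 397 and 305 in YAP-5SA and 161, 171, 258, 221 and 228 in TAZ-S89A (log2 fold change -1.39, SE 0.19, adjusted p = 3.24e-05). All 6 subunits of the replication helicase on the list, Mcm2 to Mcm7, were lower with no overlap. Mcm5 was at 58.9, 60.7 and 67.4 CPM in YAP-S127A against 98.5, 124 and 96.2 in YAP-5SA and 119, 117, 193, 173 and 169.99 in TAZ-S89A (log2 fold change -1.04, SE 0.18, adjusted p = 2.76e-04). The log2 fold changes of the others were -0.58 (Mcm2), -0.78 (Mcm3), -0.89 (Mcm4), -0.49 (Mcm6) and -0.98 (Mcm7). TAZ-S89A replicate 3 was the highest library for Mcm5 and for Mcm7. The call of Mcm6 (adjusted p = 0.032 in edgeR) ended without single libraries, at 0.0991, 0.0794 and 0.1 without YAP-S127A replicates 1, 2 and 3 and at 0.0592 without YAP-5SA replicate 2. Ccnd2 and Ccne2, cyclin genes of the G1 phase, were higher. Ccne2 was at 267 ± 20.8 CPM in YAP-S127A against 123 ± 4.59 in YAP-5SA and 160.2 ± 55.4 in TAZ-S89A (log2 fold change 0.93, SE 0.22). Ccnd2 was at 963 ± 61.8 CPM in YAP-S127A against 782 ± 44.8 in YAP-5SA and 93.8 ± 9.82 in TAZ-S89A (log2 fold change 1.83, SE 0.15), but its difference from YAP-5SA was not called at 0.30 (SE 0.19, adjusted p = 0.205).

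Of 24 p53 targets and cell cycle inhibitors, 7 were called higher and 9 lower, 2 and 4 with no overlap, with a median of -0.0244. Cdkn2b, an inhibitor of CDK4 and CDK6 that TGF-beta induces, was at 6.71, 5.97 and 7.47 CPM in YAP-S127A against 20.7, 24 and 16.5 in YAP-5SA and 78.1, 87.1, 119, 59.7 and 58.3 in TAZ-S89A (log2 fold change -2.59, SE 0.24). Its neighbour Cdkn2a was at 38.2, 47.1 and 61 CPM in YAP-S127A against 124, 165 and 91.3 in YAP-5SA and 199, 176, 346, 79.4 and 80.9 in TAZ-S89A (log2 fold change -1.62, SE 0.42). Within TAZ-S89A replicates 4 and 5 were lowest and replicate 3 highest for both genes. Perp, a p53 target of desmosomes, was at 31 ± 6.35 CPM in YAP-S127A against 443 ± 151 in YAP-5SA and 68.3 ± 23.1 in TAZ-S89A (log2 fold change -2.49, SE 0.29).

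Interferon response genes were split, with 9 of 29 called higher and 12 lower, 6 and 7 with no overlap, and a median of -0.191. Ifi27, an interferon gene of mitochondria, was at 45.3, 48.2 and 54.6 CPM in YAP-S127A against 1.42, 1.84 and 1.5 in YAP-5SA and 8.47, 9.74, 12.9, 6.2 and 5.05 in TAZ-S89A (log2 fold change 3.75, SE 0.21). Isg15, a ubiquitin-like modifier, was at 18.4 ± 3.21 CPM in YAP-S127A against 3.62 ± 0.923 in YAP-5SA and 6.2 ± 3.54 in TAZ-S89A (log2 fold change 1.94, SE 0.36). Ifit1, which binds viral RNA caps, was at 2.32 ± 0.408 CPM in YAP-S127A against 1.06 ± 0.434 in YAP-5SA and 0.15 ± 0.142 in TAZ-S89A (log2 fold change 2.49, SE 0.36). The guanylate-binding gene Gbp2 was lower at 1.27, 0.886 and 1.22 CPM in YAP-S127A against 7.21, 10.4 and 7.21 in YAP-5SA and 8.07, 8.11, 14.2, 8.64 and 8.35 in TAZ-S89A (log2 fold change -2.96, SE 0.25). Gbp3, of the same family, was lower at 0.605 ± 0.102 CPM in YAP-S127A against 2.89 ± 0.906 in YAP-5SA and 2.79 ± 0.75 in TAZ-S89A (log2 fold change -2.22, SE 0.29). Mx1, an antiviral GTPase, had no count in YAP-S127A and was at 0 ± 0, 1.46 ± 0.0938 and 0.0582 ± 0.0281 CPM in the 3 groups.

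Markers of biliary and progenitor cells were more often lower. Of 17 tested, 3 were called higher and 12 lower, 1 and 6 with no overlap, with a median of -1.19. Besides Lgr5, Cd24a, a surface marker of progenitor cells, was at 63.2, 61.2 and 75.5 CPM in YAP-S127A against 429, 547 and 449.5 in YAP-5SA and 185, 182, 245, 229 and 229.6 in TAZ-S89A (log2 fold change -2.26, SE 0.18, adjusted p = 1.65e-07). Cftr, the chloride channel of bile ducts, was at 0.914, 0.886 and 1.5 CPM in YAP-S127A against 4.7, 4.68 and 3.51 in YAP-5SA and 6.84, 5.66, 6.26, 6.77 and 6.55 in TAZ-S89A (log2 fold change -2.25, SE 0.20). Prom1, the gene of CD133, was the higher member but lay below 0.5 CPM throughout, at 0.371 ± 0.042, 0.0563 ± 0.0609 and 0.0141 ± 0.0199 CPM in the 3 groups. The list summed to 706 to 834.3 CPM in YAP-S127A against 4113 to 5576 in YAP-5SA and 2251 to 4206 in TAZ-S89A.

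Among 14 tested hepatocyte markers, 10 were called higher and 4 lower, 5 and 1 with no overlap, with a median of 1.28, yet the list summed to 142 to 152.9 CPM in YAP-S127A, below the 803.4 to 867.1 of YAP-5SA and above the 12.39 to 15.11 of TAZ-S89A. Hp, the plasma protein haptoglobin, was at 0.0352 ± 0.0431 CPM in YAP-S127A against 0.637 ± 0.285 in YAP-5SA and 0.675 ± 0.211 in TAZ-S89A (log2 fold change -4.05, SE 0.63).

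Of the endothelial markers, 5 of 12 were tested, 2 were called higher and 3 were not called, with a median of -0.0103. Emcn, a sialomucin of veins, was at 6.66, 6.82 and 9.33 CPM in YAP-S127A against 0, 0.0239 and 0.0726 in YAP-5SA and 0 in every TAZ-S89A library. Kdr, a receptor of the Vegfa product, was at 1.25 ± 0.206 CPM in YAP-S127A against 0.24 ± 0.16 in YAP-5SA and 0.101 ± 0.0825 in TAZ-S89A (log2 fold change 3.06, SE 0.38). Cdh5, Tek, Tie1 and Vwf, which define endothelium, were too low to test. Of 13 leukocyte markers tested, 1 was called higher and 5 lower, 4 of the latter with no overlap, with a median of -0.503, or -1.4 with the gene that has a group at 0 counts put at its bound. The higher one was no longer called without YAP-S127A replicate 1. Mrc1, a mannose receptor of macrophages and sinusoidal endothelium, was at 0.401, 0.59 and 0.472 CPM in YAP-S127A against 7.91, 14.3 and 10.04 in YAP-5SA and 7.38, 6.89, 10.5, 10.2 and 10.8 in TAZ-S89A (log2 fold change -4.36, SE 0.28). Cd14, which binds bacterial lipids, was at 10.8 ± 2.42 CPM in YAP-S127A against 37.2 ± 5.25 in YAP-5SA and 21.9 ± 4.02 in TAZ-S89A (log2 fold change -1.40, SE 0.18). Cd74, the invariant chain of antigen presentation, was at 0.0627 ± 0.0062 CPM in YAP-S127A against 9.13 ± 1.62 in YAP-5SA and 0.294 ± 0.161 in TAZ-S89A (log2 fold change -4.58, SE 0.45). The part of other cell types in these levels was not tested.

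Genes at or near 0 on 1 side of the comparison form a set of their own. In 1 direction, 45 genes with a symbol other than that of a predicted model had at most 3 counts over all 8 other libraries, no overlap and a call, and 17 of them had none. In the opposite direction 75 genes had at most 3 counts over the 3 YAP-S127A libraries, and 22 of these had none. The limit of 3 counts is stricter over 8 libraries than over 3, so 45 and 75 do not compare the directions. Beyond those named above, Tnfsf11, the osteoclast factor RANKL, was at 9.72, 11 and 14.3 CPM in YAP-S127A against 0, 0.0239 and 0.0484 in YAP-5SA and 0 in every TAZ-S89A library. Pde7b, a phosphodiesterase, was at 8.71 ± 0.737 CPM in YAP-S127A against 0.00797 ± 0.0138 in YAP-5SA and 0.00815 ± 0.0182 in TAZ-S89A. Abca8a, a lipid transporter, was at 6.53 ± 0.792 CPM in YAP-S127A against 0 ± 0 in YAP-5SA and 0.0212 ± 0.0207 in TAZ-S89A. St8sia1, which makes the ganglioside GD3, was at 5.21 ± 0.413 CPM in YAP-S127A against 0.0178 ± 0.0309 in YAP-5SA and 0.00472 ± 0.0106 in TAZ-S89A. Each of these was above 4 CPM in all YAP-S127A libraries.

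On the silent side, Ces1g, a liver carboxylesterase, was at 0 in every YAP-S127A library against 0.641, 0.932 and 0.411 in YAP-5SA and 5.35, 5.46, 4.87, 4.48 and 3.46 in TAZ-S89A. Foxo6, a forkhead factor, was at 0.0258 ± 0.0231 CPM in YAP-S127A against 1.71 ± 0.215 in YAP-5SA and 4.17 ± 0.474 in TAZ-S89A. Enpp2, which makes lysophosphatidic acid, was at 0.0109 ± 0.0189 CPM in YAP-S127A against 1.43 ± 0.257 in YAP-5SA and 0.772 ± 0.599 in TAZ-S89A. Slc5a9, a sugar transporter, was at 0.0109 ± 0.0189 CPM in YAP-S127A against 0.717 ± 0.333 in YAP-5SA and 0.808 ± 0.286 in TAZ-S89A. Ifitm10, of an interferon-induced family, was at 0.0149 ± 0.0257 CPM in YAP-S127A against 0.681 ± 0.243 in YAP-5SA and 1.52 ± 0.659 in TAZ-S89A. Levels in the other groups were low for these genes, under 6 CPM.

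**Figure D4:**
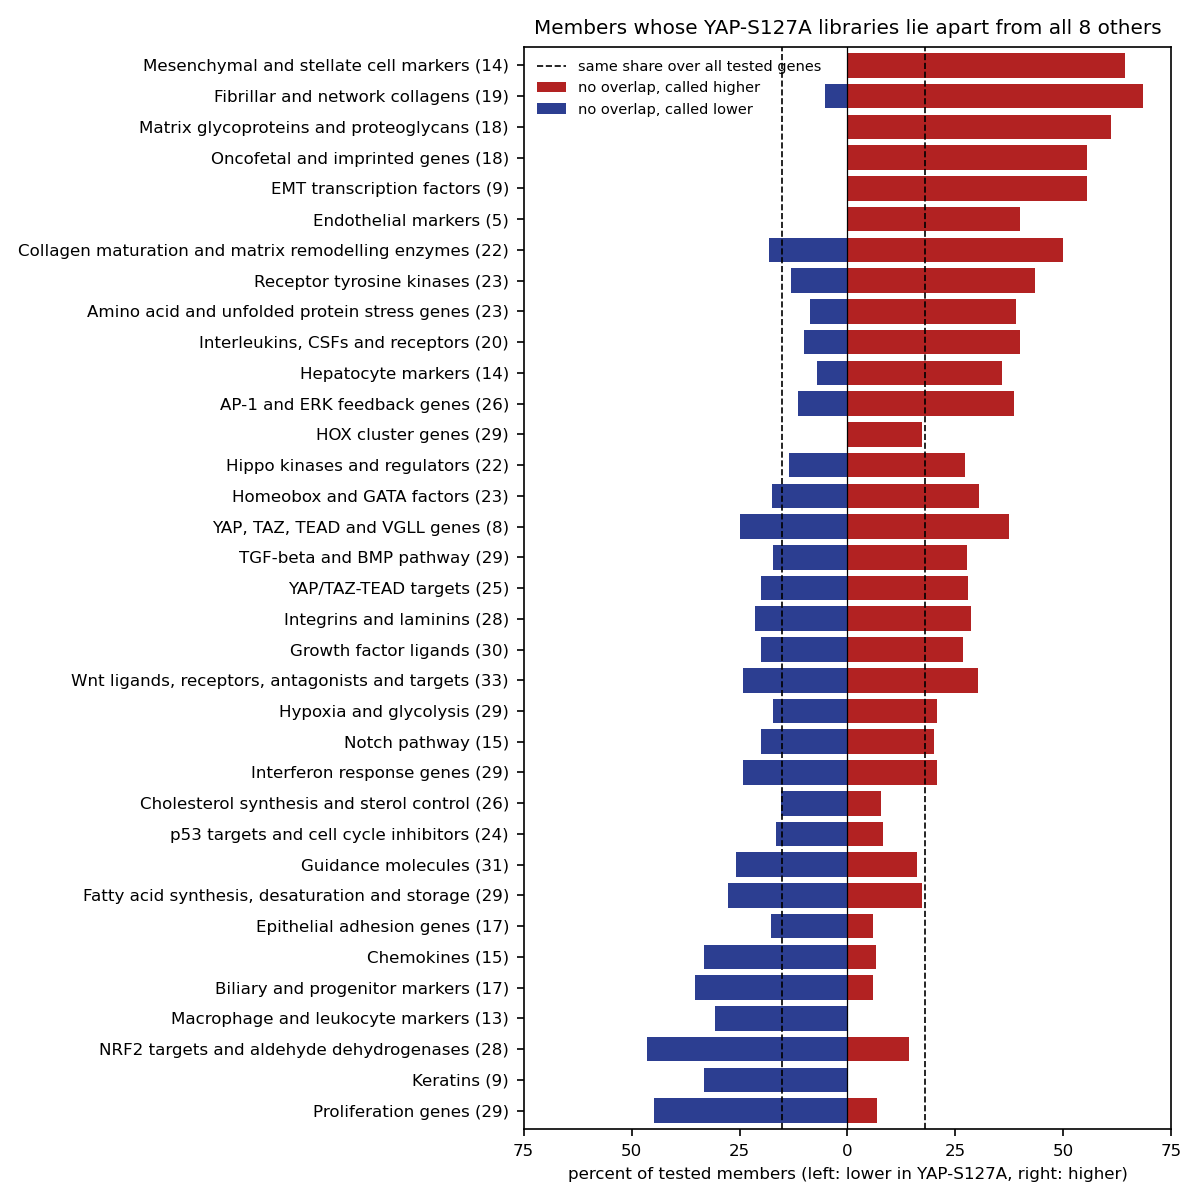
Percent of the tested members of each gene list (number in brackets) with no overlap between YAP-S127A and the 8 others and called higher (right) or lower (left), with dashed lines at 17.9% and 15.2%, the shares over all tested genes. Mesenchymal, collagen and matrix lists stand farthest to the right, and the NRF2, proliferation and biliary lists farthest to the left.

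Genes of the profile were not spread evenly over chromosomes. On chromosome 9, 32.2% of tested genes had no overlap and were called higher and 4.96% lower, and on chromosome 7 the shares were 31.7% and 4.73%. Chromosome 15 was the reverse, with 8.78% higher and 31.6% lower. The median log2 fold change was 0.397, 0.4 and -0.443 on chromosomes 9, 7 and 15. Against YAP-5SA alone the medians were 0.0933, 0.117 and -0.621, and against TAZ-S89A alone 0.666, 0.704 and -0.298, so on chromosomes 9 and 7 the distance was mostly to TAZ-S89A. On chromosome 17 the median of 0.286 came from 0.703 against YAP-5SA and -0.203 against TAZ-S89A. Copy number was not measured.

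**Figure D5:**
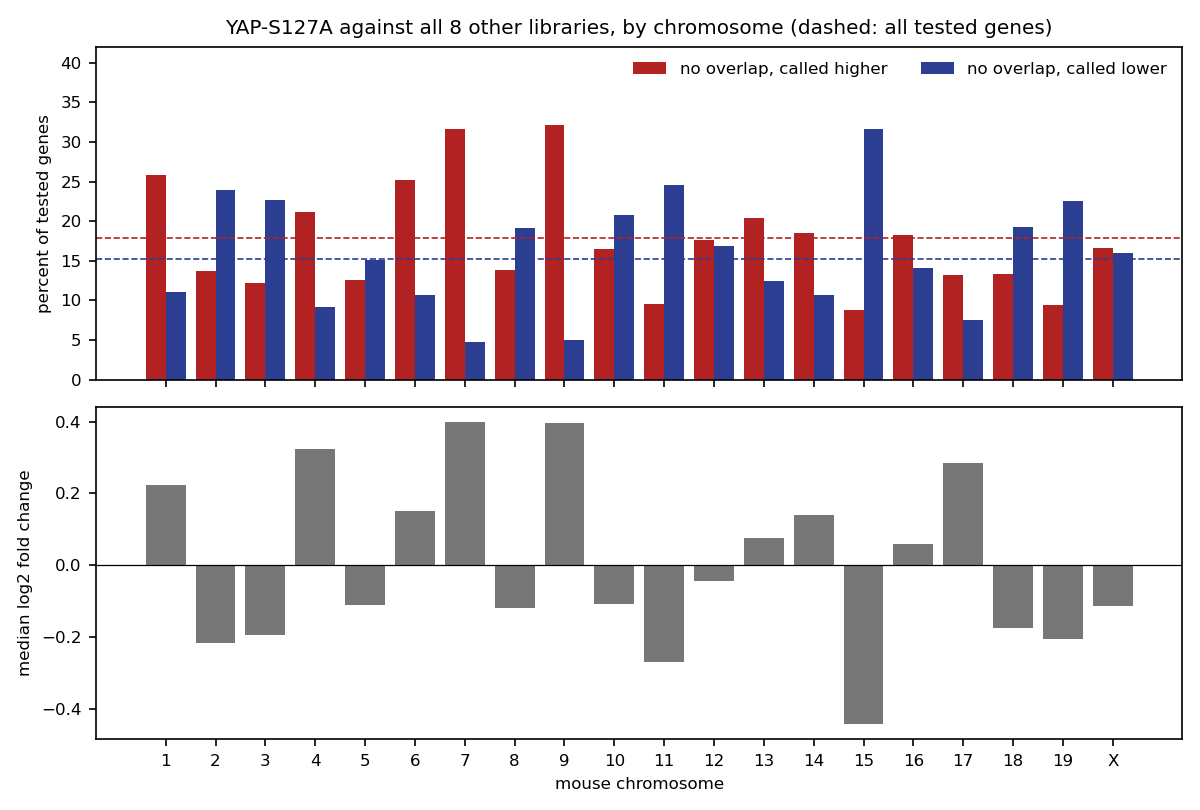
Percent of tested genes on each mouse chromosome with no overlap and called higher or lower in YAP-S127A (upper panel, dashed lines at the shares over all tested genes) and the median log2 fold change (lower panel). Chromosomes 7 and 9 stand highest and chromosome 15 lowest.

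Neighbouring tested genes of the profile formed runs in 1 direction, of which 747 held 2 genes and the 3 longest held 9. A run on chromosome 7 from 67784538 to 70411146 was higher with a median of 4.41. It held Igf1r, which encodes the receptor of insulin-like growth factors, at 279, 281 and 250.5 CPM in YAP-S127A against 134, 103 and 141 in YAP-5SA and 92, 84.3, 59.96, 77.8 and 72 in TAZ-S89A (log2 fold change 1.45, SE 0.15, adjusted p = 1.70e-06). Nr2f2, an orphan nuclear receptor of mesenchyme and veins, was at 69.8, 65.3 and 61.6 CPM in YAP-S127A against 21.1, 20.4 and 23.5 in YAP-5SA and 44.5, 43.5, 35.9, 49.1 and 47.9 in TAZ-S89A (log2 fold change 1.08, SE 0.11, adjusted p = 1.67e-06). Between them lay Arrdc4, an arrestin-like gene, at 38.3 ± 1.74 CPM in YAP-S127A against 14.6 ± 1.97 in YAP-5SA and 13.6 ± 1.2 in TAZ-S89A (log2 fold change 1.44, SE 0.11). Pgpep1l, a predicted peptidase, was at 2.14 ± 0.279, 0.162 ± 0.105 and 0 ± 0 CPM in the 3 groups. The noncoding 4833412C05Rik and B130024G19Rik at its ends were at 2.07 ± 0.133, 0.0639 ± 0.0729 and 0.129 ± 0.0861 CPM and at 9.83 ± 0.158, 0.678 ± 0.266 and 1.01 ± 0.261 CPM. The other members, Fam169b, Gm34350 and Gm29683, were below 3 CPM in every library.

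The other long runs hold genes that share reads. On chromosome 1, from 88055411 to 88220002, 9 genes were lower with a median of -4.93. They are Ugt1a10, Ugt1a9, Ugt1a7c, Ugt1a6b, Ugt1a6a, Ugt1a5, Ugt1a2, Dnajb3 and Ugt1a1, and the Ugt1a genes, which attach glucuronic acid to bilirubin, hormones and drugs, have their last exons in common. Ugt1a1 was at 3.28, 4.46 and 4.25 CPM in YAP-S127A against 353, 481 and 356 in YAP-5SA and 34, 31.7, 34.1, 41.8 and 42.2 in TAZ-S89A (log2 fold change -4.92, SE 0.21, adjusted p = 2.28e-10), and the other Ugt1a genes had nearly the same values, so this counts as a single measurement. YAP-5SA stood about 10-fold above TAZ-S89A there. The third run, also on chromosome 7, was higher with a median of 1.19 and included the ribosomal protein gene Rpl13a, the small nucleolar RNA genes Snord35b, Snord35a, Snord34, Snord33 and Snord32a, Mir5121 and Flt3l, the gene of a cytokine of dendritic cells. Rpl13a was at 7231, 8064 and 7218 CPM in YAP-S127A against 4119, 3482 and 3358 in YAP-5SA and 3067, 2981, 2699, 802 and 916 in TAZ-S89A (log2 fold change 1.44, SE 0.38, adjusted p = 0.0054), with TAZ-S89A replicates 4 and 5 far below the other 3. Flt3l was at 14.6 ± 1.17 CPM in YAP-S127A against 7.08 ± 1.19 in YAP-5SA and 6.94 ± 0.49 in TAZ-S89A (log2 fold change 1.06, SE 0.12).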

How the data were processed

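PolyA RNA of 11 mouse liver cancer cell line libraries was measured, grouped by the mutation in the labels (3 YAP-S127A, 3 YAP-5SA, 5 TAZ-S89A). The deposited values are raw counts of reads that align uniquely to each gene model, per the file headers. The files also hold RPKM values that the authors scaled with a size factor per library (nRPKM), per the file headers, used here only to compare genes per length. GSNAP and GRCm38 are named in the submitters' processing notes. Not given in the sources used here are the aligner version, the annotation, the counter and its handling of strand, so overlapping and antisense genes cannot be told apart.

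Counts were scaled with TMM and fitted with edgeR 4.0.16 (quasi-likelihood, R 4.3.3) over all 11 libraries, in a contrast of YAP-S127A with the equally weighted mean of the other groups. Of 36528 gene IDs, 18304 were removed by edgeR's filter on low counts and 18224 tested, with Benjamini-Hochberg adjustment over all of them. SE is the absolute log2 fold change divided by the square root of F. Gene names and promoters are from RefSeq GRCm38.p6. In it 31049 IDs had a symbol, and the 5479 others held 2.91% of counts. The members and gene lists were chosen with earlier results of these data known. Named genes are fixed Hippo genes, the 12 highest and 12 lowest by the smaller pairwise fold change at an average of at least 2 log2 CPM, up to 3 per list and direction, up to 8 near 0 counts in each direction and the 3 longest runs. Chosen after their values were seen were Acta2, Axl, Clcf1, Col1a1, Col1a2, Col3a1, Crim1, Csf1, Dnm3, Etv4, Etv5, Fgfr1, Fn1, Fosb, Grb10, Hoxd4, Hspa5, Jun, Krt19, Krt7, Lif, Mcm2, Mcm3, Mcm4, Mcm6, Mir199a-2, Nes, Notum, Nqo1, Osmr, Pdgfd, Pdgfrb, Peg3, Tagln, Vegfa, Vim, Wnt10a, Wnt10b and Wnt5b, and the genes at the edge of the rule. Genes with a group at 3 counts or fewer get no fold. Alternatives were other scalings, DESeq2 1.42.0, limma-voom (limma 3.58.1), other filters, and fits without single libraries. Some genes that the rule names are not reported here. The fit was tested on simulated counts first.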

Additional observations from a re-analysis of the deposited data

Results flagged for a closer look

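Among the 263 named genes, 28 had 1 TAZ-S89A library far from the other 4 by Dixon's ratio (critical value 0.71 for 5 libraries), which chance gives in about 1 of 20 groups. In 17 of the 28 the library was replicate 3, and in 9 the group held at most 3 counts. The groups of 3 libraries were too small for the test. The ratio sets 1 library against the rest, so it cannot show replicates 4 and 5 standing apart together.

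Replicate 3 was high in CPM for Hspa5 (1400.1, others 639.89 to 747.49), Plin2 (314.7, others 155 to 169.1), Psph (203.1, others 108.7 to 129.8), Sema3c (889.1, others 392 to 515), Igfbp3 (199.1, others 121.7 to 137.1), Gadd45b (127.03, others 71.08 to 85.89), Gbp2 (14.18, others 8.068 to 8.644), Cdh1 (0.8409, others 0.1887 to 0.3756), Wnt5b (0.3769, others 0 to 0.09436), Thbs2 (0.203, others 0.04174 to 0.08154) and Fam169b (0.029, 1 count, others 0). It was low for Tead1 (78.03, others 113.6 to 126.5), Arhgef17 (96.99, others 126.4 to 131.6), Fgfr1 (46.22, others 54.44 to 56.22), Osmr (38.07, others 47.91 to 50.05), P4ha3 (7.191, others 8.111 to 8.48) and Rbms3 (3.914, others 5.301 to 5.482).

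Replicate 4 was high for Peg3 (2.487, others 1.538 to 1.722) and Kdr (0.2446, others 0.04457 to 0.08699), and replicate 5 for Foxc2 (1.294, others 0.7131 to 0.8562). Single counts set apart 1 library from others at 0 for Hoxd4 and Pde7b (0.04077 each, replicate 4), Gm34350, Itga8 and St8sia1 (0.02359 each, replicate 1), and Alb and Tmem47 (0.02228 each, replicate 2). For Il1rl2, 2 counts did so (0.04457, replicate 2). Without replicate 3 no named gene lost its call.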

How the results depend on the processing

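The counts of genes called, or of genes with no overlap that were called, stayed within 1.5 times of those reported under other scalings, DESeq2, limma-voom, other filters and the sample ID series. With all 8 other libraries as 1 group, 2524 genes were called higher and 2623 lower, a fit whose spread holds the distance between YAP-5SA and TAZ-S89A. With a log2 fold change of at least 1 also required, the counts were 3005 higher and 2187 lower, and 2156 and 1461 with no overlap. Without single libraries, 4593 to 5470 genes were called higher and 3720 to 5052 lower, and 3132 to 3438 and 2645 to 3072 with no overlap. The median over all tested genes ranged from -0.0737 to 0.0512 and the share of called genes that were higher from 49.0% to 55.5%.

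Of 263 named genes, 228 kept direction and side of the threshold in every fit, and 35 did not in at least 1. Ccn1, which was not called, changed sign to 0.002203 with upper-quartile scaling, 0.1124 without the second sample ID series, 0.08956 with it as a covariate and 0.03184 with all 8 as 1 group. Without single libraries Ccn1 ranged from -0.04888 (without TAZ-S89A replicate 2) to 0.01976. Without YAP-S127A replicates 2 and 3 it was 0.01376 and 0.01976, without YAP-5SA replicates 1 and 3 0.007746 and 0.003743, and without TAZ-S89A replicates 4 and 5 0.003595 and 0.003783. Tead2 became -0.1502 and Krt7 -2.685 with all 8 as 1 group, and Vim 0.0208 without the second series. The cause was not tested. Calls of Abca1, Amotl2, Ankrd1, Atf3, Ccn2, Ccnd2, Clcf1, Col1a2, Crim1, Ddr1, Hoxd4, Ifit1, Jun, Krt19, Mcm2, Mcm6, Mgll, Mx1, Notch4, Nqo1, Pdgfd, Pdgfrb, Scd1, Spry4, Vegfa, Vgll3, Wwtr1 and Yap1 ended with all 8 as 1 group, and that of Vgll3 also without the second series (adjusted p = 0.055 in edgeR). With no filter on low counts, Ankrd1 (adjusted p = 0.088) and Serpina7 (adjusted p = 0.0821) lost theirs in edgeR. No paired analysis was possible because the labels give no replicate numbers shared between groups. Depth limits the genes near 0 counts, where 1 count is worth about 0.02 to 0.04 CPM.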
